A study of Mus musculus with 6 samples.

Results

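Mouse bone marrow-derived macrophages (BMMs) cultured with RANKL + LEA (2 libraries) were compared by RNA-seq with BMMs cultured with RANKL alone (2 libraries), and 2 libraries of BMMs without RANKL give the starting level. RANKL, the cytokine that turns macrophage precursors into osteoclasts, was used at 100 ng/mL. LEA, used at 10 µg/mL, is the ethyl acetate fraction of a water extract of the shiitake mushroom *Lentinula edodes* and therefore a mixture of compounds. All 3 groups were kept in 30 ng/mL M-CSF, the growth factor on which macrophages depend. The comparison asks which RANKL-dependent and other transcripts change when LEA is present. Its members are the genes that reached 0.5 FPKM (a read count scaled by the length of a gene's exons and by the mapped reads of the library) in at least 2 of the 6 libraries, which 11905 of the 24940 genes in the deposited table did. Just inside this limit lay A430088P11Rik and Gm7854, whose second highest library was at 0.5 FPKM, and just outside it lay Mir26b and Prr5, at 0.499 FPKM.

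The BMMs were grown from femur and tibia marrow of mice aged 6 to 8 weeks, first for 16 h in 5 ng/mL M-CSF and then, from the cells that had not attached, for 3 days in 30 ng/mL M-CSF. The sources differ on the material, since male ICR mice, an RNeasy kit and a SMARTer Stranded kit stand in the methods, whereas the labels have TRIzol extraction, an Illumina standard protocol and the strain C57BL/6. The time of RNA harvest, any solvent given to the cells without LEA, and whether the 2 libraries of a group came from separate cultures or mice are not stated. The p-values below therefore measure only the spread between these libraries, which may be technical.

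Osteoclasts are large multinucleated cells of the macrophage lineage that dissolve bone. RANKL binds RANK, which signals through TRAF6 to NF-κB and AP-1, and calcium signals from receptors that pair with ITAM adaptors let the transcription factor NFATc1 raise its own expression. NFATc1 then switches on the genes for cell fusion, for attachment to bone, and for the acid and proteases that dissolve mineral and collagen. As precursors commit to this fate they shut down many macrophage genes, among them scavenger receptors, pattern recognition receptors and repressors such as IRF8 that hold the osteoclast programme back, and they expand their mitochondria.

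Depth was even, at 46380604 to 49593335 mapped reads per library, and replicates were close, with a Pearson correlation of log2 values across genes of 0.985 with RANKL + LEA, 0.988 with RANKL and 0.988 without RANKL. The labelled cell type was checked against marker lists. All 10 macrophage markers were above the filter, and the 10 osteoclast markers together reached 2739 and 2613 FPKM with RANKL + LEA, against 6023 and 5189.8 FPKM with RANKL and 36.0 and 36.1 FPKM without RANKL. Defining genes of B cells and of mast cells and basophils were all below the filter. Dendritic cells and endothelium had 3 tested markers each and 0 called. The only tested markers of T and NK cells (*Il7r*) and of erythroid cells and megakaryocytes (*Pf4*) were called higher with RANKL + LEA (levels below). Of 16 markers of neutrophils and their precursors, 4 were tested, and their list summed to 9.48 and 7.73 FPKM with RANKL + LEA, against 4.09 and 3.18 FPKM with RANKL and 8.95 and 10.6 FPKM without RANKL. 2 of these 4, Mmp8 and S100a8 (named after its values were seen), were called higher with RANKL + LEA, and the part of such cells in any result was not tested.

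Adding LEA to RANKL raised 540 genes and lowered 211. These calls required an adjusted p under 0.05 (limma, Benjamini-Hochberg) together with a change of 1.5-fold or more. Calls covered 4.54% of genes upward, 1.77% downward and 6.31% in all, so 71.9% of the calls were rises. Each library was also left out in turn, and 10 other settings were tried, namely pseudocounts of 0.01, 0.5 and 1, TMM scaling, the median of ratios, quantile normalization, voom on recovered reads, no intensity trend, only the 4 libraries with RANKL, and the replicate number as a block. Each log2 fold change below is RANKL + LEA over RANKL on the scale of log2(FPKM + 0.1), with its standard error (SE). The median over all genes tested was 0.05 (between −0.01 and 0.01 with quantile normalization, TMM scaling, the median of ratios or voom), the middle 50% of genes lay between −0.12 and 0.24, and the middle 90% between −0.50 and 0.73. Both RANKL + LEA libraries lay above both RANKL libraries for 30.1% of genes and below both for 20.6%. A change of at least 2-fold was reached by 195 of the rises and 53 of the falls. At the fold limit, Il1rn (0.59) and Cep55 (0.59) were just inside, and Anln (0.58) and Uqcrc1 (−0.58) were just outside.

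The split between rises and falls moved with the scaling of the libraries. It was 57.2% rises with quantile normalization (439 higher and 328 lower) and 60.2% with voom on recovered reads (544 higher and 359 lower), and no gene called in the main comparison changed sign. Rises numbered 160 without RANKL + LEA replicate 1, 277 without RANKL + LEA replicate 2, 133 without RANKL replicate 1 and 108 without RANKL replicate 2. Falls numbered 49 without RANKL + LEA replicate 1, 73 without RANKL + LEA replicate 2, 11 without RANKL replicate 1 and 33 without RANKL replicate 2. Without the first or second library of untreated BMMs there were 459 or 460 rises and 209 falls either way. A fit that leaves a group with a lone library has less power and assumes that this library varies like the others. Of the calls, 79 rises and 8 falls held without each of the 6 libraries in turn. Below, the 4 with RANKL are the libraries with RANKL, with or without LEA. A value alone in parentheses after a gene is its log2 fold change.

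**Figure D1:**
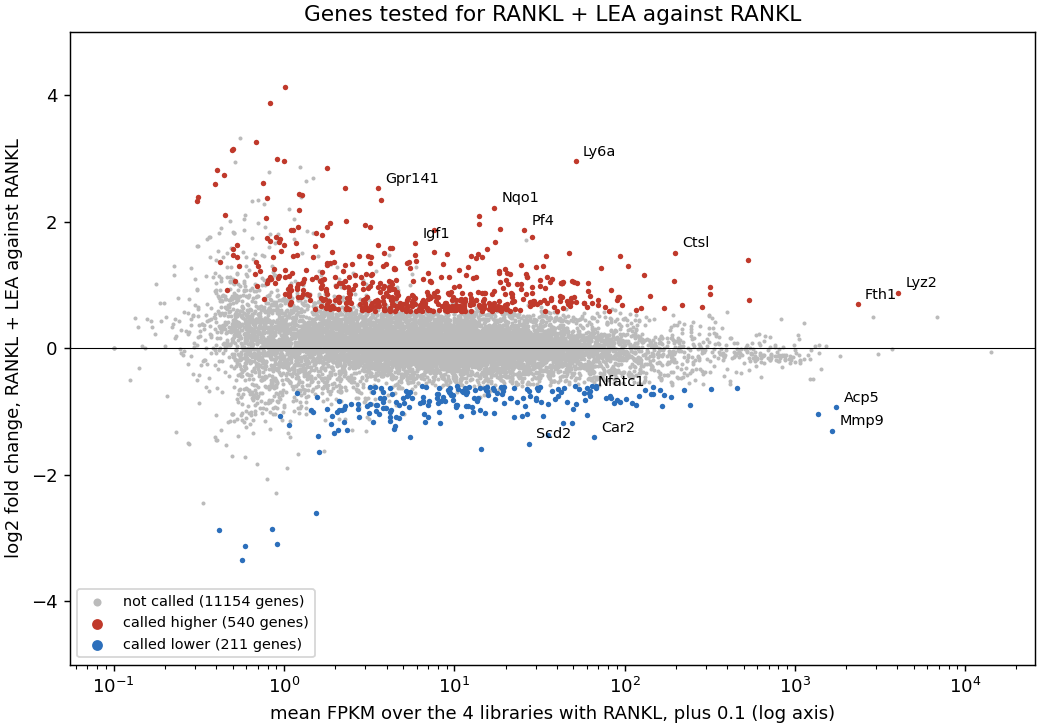
Each point is a gene tested, with its mean FPKM over the 4 libraries with RANKL (plus 0.1, log axis) across and its log2 fold change, RANKL + LEA over RANKL, upward. The 540 genes called higher are red, the 211 called lower are blue and the 11154 not called are grey, and called falls reach high levels such as those of Mmp9 and Acp5.

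Most genes that carry out bone resorption fell with LEA. Of 26 genes tested for resorption and attachment, 15 were lower and 0 higher, with a median log2 fold change of −0.83. *Acp5*, which encodes the osteoclast marker enzyme TRAP, had 1300.4 and 1102 FPKM with RANKL + LEA, against 2568 and 2022 FPKM with RANKL and 10.5 and 11.8 FPKM without RANKL (log2 fold change −0.93, SE 0.15, limma adjusted p = 0.0119). *Ctsk*, whose product cathepsin K digests bone collagen, had 123 and 107 FPKM with RANKL + LEA, against 236 and 196 FPKM with RANKL and 0 and 0.053 FPKM without RANKL (log2 fold change −0.91, SE 0.20, limma adjusted p = 0.0344). *Mmp9*, a matrix metalloprotease, stood at 905 and 1008 FPKM with RANKL + LEA, against 2456 and 2255 FPKM with RANKL and 12.3 and 12.6 FPKM without RANKL (log2 fold change −1.30, SE 0.10, limma adjusted p = 0.00118). For all 3 genes both RANKL + LEA libraries lay below both RANKL libraries and far above the cells without RANKL. In bulk RNA, fewer osteoclasts and less of each transcript per osteoclast cannot be told apart. The count of falls was 9 without RANKL + LEA replicate 1, 6 without RANKL + LEA replicate 2, 4 without RANKL replicate 1 and 5 without RANKL replicate 2. *Mmp9* held the call without each of the 6 libraries. *Acp5* lost the call without RANKL + LEA replicate 2 or RANKL replicate 1 (adjusted p up to 0.0765) and *Ctsk* without any 1 of the 4 with RANKL (p up to 0.176). *Ctsk* further lost the call with a pseudocount of 0.01, quantile normalization or no intensity trend (adjusted p up to 0.512).

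The genes for acid and ion transport across the osteoclast membrane were among these falls. *Car2*, carbonic anhydrase 2, which supplies the protons, had 36.3 and 35.6 FPKM with RANKL + LEA, against 96.8 and 94.3 FPKM with RANKL and 0 and 0.073 FPKM without RANKL (log2 fold change −1.41, SE 0.23, limma adjusted p = 0.0127). *Slc4a2*, the chloride and bicarbonate exchanger AE2, had 62.7 and 70.3 FPKM with RANKL + LEA, against 127 and 113 FPKM with RANKL and 25.3 and 22.9 FPKM without RANKL (log2 fold change −0.85, SE 0.11, limma adjusted p = 0.00689). *Slc9b2*, a sodium and proton exchanger, had 84.8 and 78.7 FPKM with RANKL + LEA, against 155 and 149 FPKM with RANKL and 0.574 and 0.474 FPKM without RANKL (log2 fold change −0.89, SE 0.12, limma adjusted p = 0.00616). In each of them the treated libraries were lower without overlap. *Calcr*, the calcitonin receptor that marks mature osteoclasts, was at 12.5 and 10.1 FPKM with RANKL + LEA, against 24.0 and 21.9 FPKM with RANKL and at 0 without RANKL (log2 fold change −1.03, SE 0.15, limma adjusted p = 0.0104). *Ckb*, which encodes a creatine kinase first known from brain, had 899.9 and 895 FPKM with RANKL + LEA, against 1983 and 1698 FPKM with RANKL, and *Tm4sf19*, a membrane protein of multinucleated cells, had 30.4 and 29.1 FPKM with RANKL + LEA, against 73.8 and 61.5 FPKM with RANKL. Their log2 fold changes were −1.03 (limma adjusted p = 0.00339) and −1.18 (limma adjusted p = 0.00420). The treated libraries of these 3 genes were again the lower ones. *Mmp14*, a membrane-bound collagenase, had a log2 fold change of −0.80 (SE 0.14, limma adjusted p = 0.0183). *Ckb* and *Tm4sf19* kept the call without each of the 6 libraries. *Car2* and *Mmp14* lost the call without any 1 of the 4 with RANKL (adjusted p up to 0.108), *Slc4a2* without RANKL + LEA replicate 1 or RANKL replicate 1 (p up to 0.0579), *Slc9b2* without either RANKL library (p up to 0.0626) and *Calcr* without RANKL + LEA replicate 2 or either RANKL library (p up to 0.0842). *Car2* was also not called with a pseudocount of 0.01 (p up to 0.358). *Car2*, *Ctsk* and *Oscar*, near 0 without RANKL, kept the call with only the 4 libraries with RANKL fitted.

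The proton pump of vacuolar type, by which lysosomes and the pit under the osteoclast are made acid, had 4 of 20 subunits lower and 1 higher, with a median of −0.45. The subunits that fell had all been raised by RANKL, and the one that rose had been lowered, in comparisons that share the RANKL libraries. *Atp6v0d2*, an osteoclast-enriched subunit of the membrane sector, had 175 and 166 FPKM with RANKL + LEA, against 325 and 307 FPKM with RANKL and 2.32 and 2.23 FPKM without RANKL (log2 fold change −0.89, SE 0.10, limma adjusted p = 0.00337). *Atp6v1d* had a log2 fold change of −0.75 (SE 0.11, limma adjusted p = 0.0106), *Atp6v1b2* one of −0.63 and *Atp6v1c1* one of −0.61. *Atp6v0a1*, an alternative to the osteoclast isoform in the membrane sector, went the other way, with 12.3 and 15.0 FPKM with RANKL + LEA, against 8.62 and 9.004 FPKM with RANKL and 52.4 and 45.3 FPKM without RANKL (log2 fold change 0.62, SE 0.13, limma adjusted p = 0.0311). *Tcirg1*, the osteoclast isoform, had 236 and 229 FPKM with RANKL + LEA, against 370.0 and 316 FPKM with RANKL, a log2 fold change of −0.56 that missed the fold limit (limma adjusted p = 0.0241). The 4 falls became 2 without RANKL + LEA replicate 1, 1 without RANKL + LEA replicate 2 or either RANKL library, 7 with TMM scaling or voom and 8 with the median of ratios. *Atp6v0d2* held the call without each of the 6 libraries. *Atp6v1b2*, *Atp6v1c1* and *Atp6v0a1* lost the call without any 1 of the 4 with RANKL (adjusted p up to 0.134) and *Atp6v1d* without RANKL + LEA replicate 2 or either RANKL library (p up to 0.0725). *Atp6v1b2* and *Atp6v1c1* further lost the call with quantile normalization or no intensity trend (adjusted p up to 0.0544) and *Atp6v0a1* with 6 of 10 other settings (p up to 0.0617).

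Fusion genes went in both directions. Of 19 tested, 4 were lower and 4 higher, and the median was −0.41. *Dcstamp* and *Ocstamp* encode the transmembrane proteins that osteoclast precursors need to fuse. *Dcstamp* had 63.2 and 50.5 FPKM with RANKL + LEA, against 106 and 89.6 FPKM with RANKL and 1.42 and 1.33 FPKM without RANKL (log2 fold change −0.78, SE 0.14, limma adjusted p = 0.0183). *Ocstamp* had 40.0 and 37.9 FPKM with RANKL + LEA, against 84.8 and 76.7 FPKM with RANKL and 0.226 and 0.191 FPKM without RANKL (log2 fold change −1.05, SE 0.12, limma adjusted p = 0.00372). *Itgb3*, the β3 chain of the vitronectin receptor with which osteoclasts hold on to bone, had 60.1 and 62.5 FPKM with RANKL + LEA, against 110.2 and 114 FPKM with RANKL and 1.33 and 1.46 FPKM without RANKL (log2 fold change −0.87, SE 0.10, limma adjusted p = 0.00451). All 3, with *Atp6v0d2*, made up the falls, and the treated libraries lay below those with RANKL alone without overlap. The rises were *Vat1* (0.77), *Adam8* (0.65), *Cd81* (0.74) and *P2rx7* (0.59), which RANKL had lowered. *Cd81* encodes a tetraspanin, and *P2rx7* the ATP-gated channel. Counts of falls were 5 without RANKL + LEA replicate 1, 3 without RANKL + LEA replicate 2 or RANKL replicate 1, 2 without RANKL replicate 2 and 7 with voom, and counts of rises 1 without either RANKL + LEA library or RANKL replicate 1 and 0 without RANKL replicate 2. *Ocstamp* kept the call without each of the 6 libraries. *Itgb3* and *Vat1* lost the call without RANKL replicate 2 (adjusted p up to 0.0555), *Adam8* and *Cd81* without any 1 of the 4 with RANKL (p up to 0.191), *Dcstamp* without RANKL + LEA replicate 2 or either RANKL library (p up to 0.104) and *P2rx7* without any 1 library (p up to 0.180). *Cd81* was also not called with no intensity trend (adjusted p up to 0.0691) and *P2rx7* with 9 of 10 other settings (p up to 0.0617).

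The podosome, the actin structure that seals the resorbing cell to bone, had 6 of 25 genes lower and 0 higher (median −0.15). *Vcl*, vinculin, had 18.5 and 18.7 FPKM with RANKL + LEA, against 33.8 and 30.1 FPKM with RANKL and 5.76 and 5.54 FPKM without RANKL (log2 fold change −0.78, SE 0.11, limma adjusted p = 0.00736), and its exons overlap those of *Ap3m1* on the other strand by 2090 bases, whose reads the counting does not separate. *Pstpip1*, an adaptor of the actin cytoskeleton, had 73.7 and 81.9 FPKM with RANKL + LEA, against 139 and 145 FPKM with RANKL (log2 fold change −0.87, SE 0.10, limma adjusted p = 0.00423). *Rac2*, a haematopoietic small GTPase, had 109 and 107 FPKM with RANKL + LEA, against 192 and 164 FPKM with RANKL (log2 fold change −0.72, SE 0.11, limma adjusted p = 0.0112). *Cttn*, cortactin, had 4.61 and 3.90 FPKM with RANKL + LEA, against 9.54 and 8.12 FPKM with RANKL and 0.237 and 0.261 FPKM without RANKL (log2 fold change −1.04, SE 0.16, limma adjusted p = 0.0118). No RANKL + LEA library reached the lower of the RANKL libraries in any of these. *Myo1e*, an unconventional myosin, had a log2 fold change of −0.62 (limma adjusted p = 0.0154). The falls numbered 2 without RANKL + LEA replicate 1 or RANKL replicate 2, 3 without RANKL + LEA replicate 2 and 1 without RANKL replicate 1. *Vcl* lost the call without RANKL + LEA replicate 1 or RANKL replicate 1 (adjusted p up to 0.0571), *Pstpip1* without RANKL replicate 2 (p up to 0.0505), *Rac2* without either RANKL + LEA library or RANKL replicate 1 (p up to 0.0701) and *Cttn* without RANKL + LEA replicate 2 or either RANKL library (p up to 0.0829). *Myo1e* lost the call without RANKL + LEA replicate 1 or either RANKL library (adjusted p up to 0.09998).

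Of the transcription factors that activate osteoclast genes, 4 of 26 were lower and 1 was higher (median −0.11). *Nfatc1*, the master regulator (chr18:80647435-80713071 in mm10), had 41.6 and 55.3 FPKM with RANKL + LEA, against 75.1 and 78.1 FPKM with RANKL and 7.94 and 6.44 FPKM without RANKL (log2 fold change −0.67, SE 0.16, limma adjusted p = 0.0412). *Jdp2*, an AP-1 partner needed for osteoclast formation, had 139.7 and 137 FPKM with RANKL + LEA, against 252 and 220.3 FPKM with RANKL and 4.74 and 5.46 FPKM without RANKL (log2 fold change −0.77, SE 0.12, limma adjusted p = 0.0101). *Fosl2*, the AP-1 protein Fra-2, had 55.0 and 66.9 FPKM with RANKL + LEA, against 102 and 103 FPKM with RANKL and 6.65 and 6.12 FPKM without RANKL (log2 fold change −0.76, SE 0.12, limma adjusted p = 0.0123). These RANKL-induced factors stayed well above the level without RANKL when LEA was present. *Bhlhe40*, a helix-loop-helix factor, fell too (log2 fold change −0.84, SE 0.12, limma adjusted p = 0.00869). *Nfatc2* was the factor that rose, with 8.14 and 11.4 FPKM with RANKL + LEA, against 4.92 and 5.54 FPKM with RANKL and 15.0 and 13.2 FPKM without RANKL (log2 fold change 0.87, SE 0.17, limma adjusted p = 0.0244). *Prdm1* (BLIMP1), which represses anti-osteoclast genes, had 12.8 and 14.7 FPKM with RANKL + LEA, against 19.997 and 21.1 FPKM with RANKL, and its log2 fold change of −0.58 was just under the fold limit (limma adjusted p = 0.0267). The count of falls was 0 without RANKL + LEA replicate 1 or RANKL replicate 1, 3 without RANKL + LEA replicate 2 and 1 without RANKL replicate 2. *Nfatc1* and *Fosl2* lost the call without RANKL + LEA replicate 1 or either RANKL library (adjusted p up to 0.205), *Jdp2* without any 1 of the 4 with RANKL (p up to 0.0681), *Bhlhe40* without RANKL + LEA replicate 1 or RANKL replicate 1 (p up to 0.0571) and *Nfatc2* without RANKL + LEA replicate 2 or either RANKL library (p up to 0.125). *Nfatc1* further lost the call with 5 of 10 other settings (adjusted p up to 0.0815).

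Of the genes for the first steps after RANKL binds, *Fos*, *Rela*, *Tnfrsf11a* and *Traf6* did not pass the limits. *Fos* had 79.9 and 76.2 FPKM with RANKL + LEA, against 77.4 and 60.3 FPKM with RANKL and 17.6 and 19.6 FPKM without RANKL (log2 fold change 0.19, SE 0.14, limma adjusted p = 0.469). *Rela*, the p65 subunit of NF-κB, had 23.6 and 26.9 FPKM with RANKL + LEA, against 26.2 and 22.5 FPKM with RANKL and 26.4 and 27.2 FPKM without RANKL (log2 fold change 0.05, SE 0.12, limma adjusted p = 0.852). For both genes the libraries with RANKL + LEA overlapped those with RANKL. *Tnfrsf11a*, which encodes RANK, had 52.8 and 55.1 FPKM with RANKL + LEA, against 69.9 and 62.3 FPKM with RANKL (log2 fold change −0.29, SE 0.10, limma adjusted p = 0.128). *Traf6* had 8.39 and 8.41 FPKM with RANKL + LEA, against 10.9 and 10.3 FPKM with RANKL (log2 fold change −0.33, SE 0.11, limma adjusted p = 0.1003). For *Tnfrsf11a* and *Traf6* both treated libraries were the lower ones, as for 20.6% of all genes. Across 24 genes of RANK signalling, 1 fell and 0 rose (median −0.08). The fall was that of *Src*, the tyrosine kinase that osteoclasts need for their ruffled border, with 42.8 and 44.0 FPKM with RANKL + LEA, against 80.8 and 61.6 FPKM with RANKL and 0.479 and 0.484 FPKM without RANKL (log2 fold change −0.70, SE 0.14, limma adjusted p = 0.0264). *Src* lost the call without either RANKL + LEA library or RANKL replicate 1 (adjusted p up to 0.128). *Src* was also not called with no intensity trend (adjusted p up to 0.0528).

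Among the costimulatory receptors and adaptors of the ITAM pathway, 3 of 20 rose and 2 fell (median 0.09). *Oscar*, the collagen-binding osteoclast receptor, had 18.3 and 13.5 FPKM with RANKL + LEA, against 37.6 and 29.4 FPKM with RANKL and 0 and 0.023 FPKM without RANKL (log2 fold change −1.07, SE 0.20, limma adjusted p = 0.0212). *Siglec15*, a sialic acid-binding receptor of osteoclasts, had 14.6 and 13.8 FPKM with RANKL + LEA, against 32.4 and 28.2 FPKM with RANKL and 0.062 and 0.081 FPKM without RANKL (log2 fold change −1.08, SE 0.14, limma adjusted p = 0.00550). *Trem2*, a lipid-sensing receptor shared with macrophages, had 83.2 and 75.9 FPKM with RANKL + LEA, against 46.4 and 38.6 FPKM with RANKL and 204 and 264 FPKM without RANKL (log2 fold change 0.91, SE 0.15, limma adjusted p = 0.014). *Oscar* and *Siglec15* had been raised by RANKL, and *Trem2* had been lowered. *Clec5a*, a DAP12-linked lectin, and *Pira6*, a paired immunoglobulin-like receptor whose close relatives share sequence, rose by log2 fold changes of 0.85 and 0.61, and *Pira6* had been raised by RANKL as well. *Oscar* lost the call without RANKL + LEA replicate 2 or either RANKL library (adjusted p up to 0.125), *Siglec15* without RANKL replicate 1 (p up to 0.0571), *Trem2* without any 1 of the 4 with RANKL (p up to 0.117) and *Clec5a* without either RANKL library (p up to 0.0583). *Pira6* lost the call without any 1 library (adjusted p up to 0.199). *Oscar* further lost the call with a pseudocount of 0.01 (adjusted p up to 0.248) and *Pira6* with 8 of 10 other settings (p up to 0.0684).

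**Figure D2:**
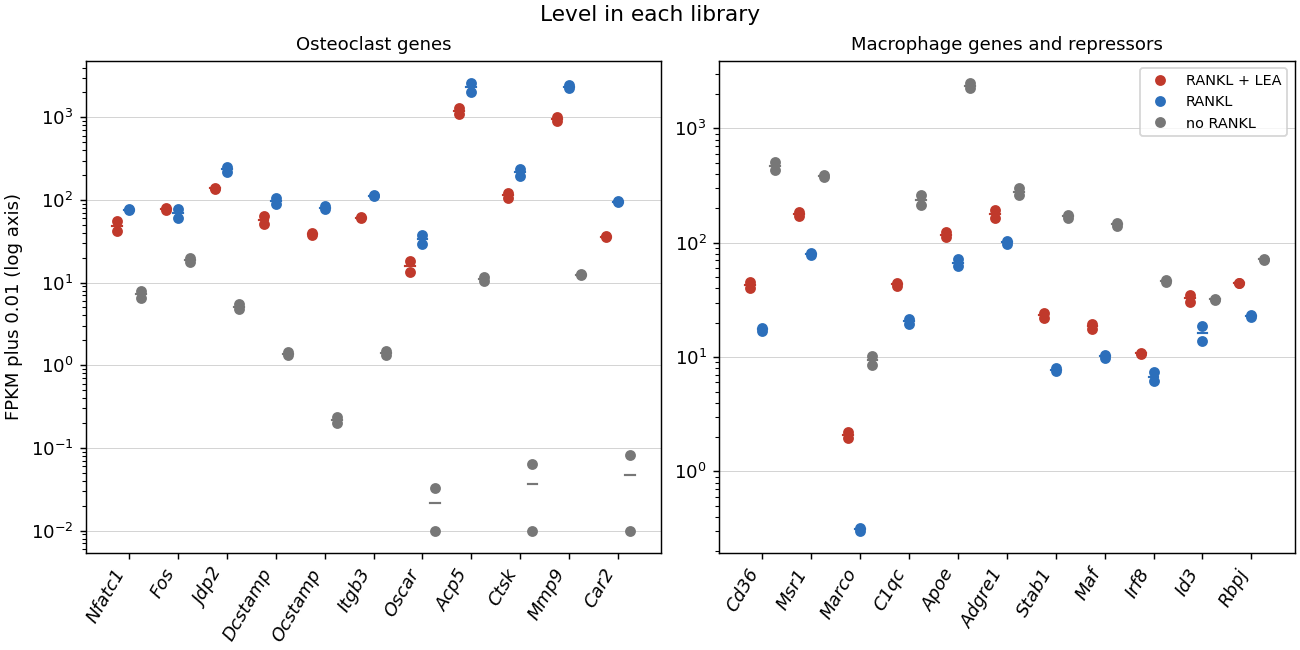
FPKM plus 0.01 (log axis) of named genes in each library, with the mean as a bar and RANKL + LEA in red, RANKL in blue and no RANKL in grey. The osteoclast genes other than *Fos* have red points below blue ones and above grey ones, and the macrophage genes and repressors have red points above blue ones.

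The largest falls beyond these lists included enzymes of lipid and steroid metabolism. Where the mean reached 2 FPKM, the called gene that fell most was *Akr1c18*, a steroid dehydrogenase that also acts on prostaglandins, with 7.58 and 6.39 FPKM with RANKL + LEA, against 24.6 and 18.1 FPKM with RANKL and 0 and 0 FPKM without RANKL (log2 fold change −1.59, SE 0.19, limma adjusted p = 0.00461). *Scd2*, a stearoyl-CoA desaturase, had 13.6 and 14.8 FPKM with RANKL + LEA, against 43.4 and 37.8 FPKM with RANKL and 19.8 and 22.1 FPKM without RANKL (log2 fold change −1.51, SE 0.12, limma adjusted p = 0.00114). *Acsl3*, which activates long-chain fatty acids, had 4.52 and 4.25 FPKM with RANKL + LEA, against 9.93 and 8.95 FPKM with RANKL and 5.66 and 6.28 FPKM without RANKL (log2 fold change −1.09, SE 0.12, limma adjusted p = 0.00375). *Scd2* and *Acsl3* with LEA lay below the cells without RANKL as well. *Mir5114* also stands among the 20 largest falls (log2 fold change −1.37, SE 0.27, limma adjusted p = 0.0241), but this hairpin gene lies inside an exon of *Scd2* on the same strand, so its FPKM counts *Scd2* reads. *Coq8a*, an atypical kinase of coenzyme Q synthesis, had 29.4 and 24.1 FPKM with RANKL + LEA, against 64.0 and 56.6 FPKM with RANKL and 1.32 and 1.12 FPKM without RANKL (log2 fold change −1.18, SE 0.14, limma adjusted p = 0.00507), with 366 bases of its exons opposite *Cdc42bpa*. *Sphk1*, which makes sphingosine 1-phosphate, had 2.25 and 2.73 FPKM with RANKL + LEA, against 6.64 and 5.74 FPKM with RANKL and 0.024 and 0 FPKM without RANKL (log2 fold change −1.28, SE 0.21, limma adjusted p = 0.0146). *Serpine2*, an inhibitor of serine proteases, had 1.49 and 1.05 FPKM with RANKL + LEA, against 3.35 and 3.07 FPKM with RANKL (log2 fold change −1.29, SE 0.23, limma adjusted p = 0.0177). All of these were below RANKL alone in both treated libraries. *Scd2* and *Acsl3* held the call without each of the 6 libraries. *Akr1c18* and *Coq8a* lost the call without RANKL replicate 1 (adjusted p up to 0.0554), *Mir5114* without either RANKL + LEA library or RANKL replicate 1 (p up to 0.125), *Sphk1* without RANKL + LEA replicate 1 or either RANKL library (p up to 0.0987) and *Serpine2* without RANKL + LEA replicate 2 or either RANKL library (p up to 0.107). *Mir5114* was also not called with no intensity trend (adjusted p up to 0.0544) and *Sphk1* with a pseudocount of 0.01 (p up to 0.197).

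The other falls in this ranking, *4833415N18Rik* (−1.40), *Tspan7* (−1.22), *Kbtbd11* (−1.18), *Rhou* (−1.17), *St5* (−1.17), *Fbxl16* (−1.16), *Chst11* (−1.15), *Card14* (−1.10), *Plekhg5* (−1.09) and *Epn2* (−1.09), had log2 fold changes between −1.40 and −1.09. *Tspan7* encodes a tetraspanin, *Rhou* an atypical small GTPase, *Chst11* a chondroitin sulfotransferase, *Plekhg5* a guanine nucleotide exchange factor and *Epn2* an epsin of endocytosis. *Tspan7* had 2.95 and 2.21 FPKM with RANKL + LEA, against 6.90 and 5.38 FPKM with RANKL and 0 FPKM in both libraries without RANKL. *Card14* had 2.81 and 3.00 FPKM with RANKL + LEA, against 6.32 and 6.36 FPKM with RANKL and 2.42 and 2.86 FPKM without RANKL, so that with LEA it stood close to its level without RANKL. *Card14* shares 839 exon bases with *Sgsh* and *Kbtbd11* 1772 with *Gm37844*, in both cases on opposite strands. *4833415N18Rik*, *Tspan7*, *Kbtbd11*, *Rhou*, *Fbxl16* and *Chst11* lost the call without any 1 of the 4 with RANKL (adjusted p up to 0.192), *St5* and *Plekhg5* without RANKL + LEA replicate 1 or either RANKL library (p up to 0.0928) and *Card14* and *Epn2* without either RANKL library (p up to 0.0663). *4833415N18Rik* and *Tspan7* further lost the call with a pseudocount of 0.01 (adjusted p up to 0.273) and *Rhou* and *Fbxl16* with a pseudocount of 0.01 or no intensity trend (p up to 0.127).

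Few mitochondrial genes passed the test. Of 76 genes of oxidative phosphorylation, 1 was called lower and 0 higher, yet none had a positive log2 fold change. Their median was −0.35, against 0.05 for all genes, and in 69 of them both RANKL + LEA libraries lay below both RANKL libraries, against 20.6% of all genes. *Cyc1*, cytochrome c1 of complex III, had 127 and 124 FPKM with RANKL + LEA, against 201 and 194 FPKM with RANKL and 49.8 and 54.2 FPKM without RANKL (log2 fold change −0.65, SE 0.10, limma adjusted p = 0.00936). *Uqcrc1*, a core subunit of the same complex, had 148 and 156 FPKM with RANKL + LEA, against 224 and 232 FPKM with RANKL (log2 fold change −0.58, SE 0.09, limma adjusted p = 0.013). *Sdhb*, the iron-sulfur subunit of complex II, had 134 and 137 FPKM with RANKL + LEA, against 194 and 189.8 FPKM with RANKL (log2 fold change −0.51, SE 0.10, limma adjusted p = 0.0256). Complexes I and II pass electrons on to complex III. *Ndufv1*, a core subunit of complex I, had 62.1 and 60.1 FPKM with RANKL + LEA, against 84.6 and 83.1 FPKM with RANKL (log2 fold change −0.46, SE 0.09, limma adjusted p = 0.0273). Each of these 4 was lower in both treated libraries, and only *Cyc1* passed the fold limit. The number called lower was 2 with TMM scaling, 3 with voom and 6 with the median of ratios. *Cyc1* lost the call without any 1 of the 4 with RANKL (adjusted p up to 0.0715).

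The citric acid cycle, which feeds electrons to that chain, had 2 of 23 genes lower and 0 higher, with a median of −0.43. *Mdh2*, malate dehydrogenase, had 260.0 and 241 FPKM with RANKL + LEA, against 437 and 351 FPKM with RANKL and 109 and 119 FPKM without RANKL (log2 fold change −0.65, SE 0.13, limma adjusted p = 0.0254). *Cs*, citrate synthase, had 135 and 133 FPKM with RANKL + LEA, against 195 and 173 FPKM with RANKL and missed the fold limit (log2 fold change −0.46, SE 0.10, limma adjusted p = 0.0335). The treated libraries were the lower pair in both genes and still above the cells without RANKL. In mitochondrial biogenesis 0 of 19 genes were called (median −0.24). There the coactivator *Ppargc1b*, which osteoclasts use to build mitochondria, had 10.2 and 14.3 FPKM with RANKL + LEA, against 19.8 and 19.0 FPKM with RANKL (log2 fold change −0.69, SE 0.24, limma adjusted p = 0.131). *Mdh2* lost the call without any 1 of the 4 with RANKL (adjusted p up to 0.116). *Mdh2* was also not called with no intensity trend (adjusted p up to 0.0559).

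Of 16 repressors of osteoclast formation, 5 rose and 0 fell, with a median of 0.45. *Irf8*, which holds down *Nfatc1* in macrophages, had 10.7 and 10.9 FPKM with RANKL + LEA, against 7.36 and 6.14 FPKM with RANKL and 45.6 and 46.9 FPKM without RANKL (log2 fold change 0.67, SE 0.12, limma adjusted p = 0.0168). *Rbpj*, the DNA-binding partner of Notch, had 44.4 and 44.8 FPKM with RANKL + LEA, against 23.5 and 22.4 FPKM with RANKL and 72.5 and 70.5 FPKM without RANKL (log2 fold change 0.96, SE 0.09, limma adjusted p = 0.00213). *Maf* had 19.6 and 17.6 FPKM with RANKL + LEA, against 10.5 and 9.80 FPKM with RANKL and 150.2 and 139.6 FPKM without RANKL (log2 fold change 0.87, SE 0.11, limma adjusted p = 0.00530). With LEA these 3 stood between their levels with RANKL alone and without RANKL. *Id1* and *Id3* encode inhibitors of helix-loop-helix factors. *Id3* had 35.1 and 30.5 FPKM with RANKL + LEA, against 18.8 and 13.7 FPKM with RANKL and 32.4 and 31.8 FPKM without RANKL (log2 fold change 1.02, SE 0.16, limma adjusted p = 0.0107) and so overlapped the cells without RANKL, whereas *Id1* had 3.26 and 2.41 FPKM with RANKL + LEA, against 1.24 and 1.41 FPKM with RANKL and 17.8 and 19.5 FPKM without RANKL (log2 fold change 1.03, SE 0.17, limma adjusted p = 0.0134). The rises numbered 2 without RANKL + LEA replicate 1, 4 without RANKL + LEA replicate 2 or RANKL replicate 1 and 1 without RANKL replicate 2. *Rbpj* held the call without each of the 6 libraries. *Irf8* lost the call without either RANKL + LEA library or RANKL replicate 2 (adjusted p up to 0.0944), *Maf* without RANKL replicate 2 (p up to 0.0579), *Id1* without RANKL + LEA replicate 1 or either RANKL library (p up to 0.0857) and *Id3* without RANKL + LEA replicate 1 or RANKL replicate 2 (p up to 0.0712).

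Most macrophage identity genes rose. Of 27 tested, 17 were higher and 0 lower, with a median of 0.82. *Cd36*, a lipid scavenger receptor, had 45.4 and 40.4 FPKM with RANKL + LEA, against 17.95 and 16.9 FPKM with RANKL and 435 and 506 FPKM without RANKL (log2 fold change 1.29, SE 0.12, limma adjusted p = 0.00153). *Msr1*, scavenger receptor A, had 187 and 171 FPKM with RANKL + LEA, against 81.5 and 78.6 FPKM with RANKL and 374 and 389 FPKM without RANKL (log2 fold change 1.16, SE 0.10, limma adjusted p = 0.00132). *Adgre1*, which encodes F4/80, had 194 and 166 FPKM with RANKL + LEA, against 105 and 97.7 FPKM with RANKL and 260.5 and 299 FPKM without RANKL (log2 fold change 0.83, SE 0.12, limma adjusted p = 0.00925). None of these treated libraries reached the level without RANKL. *Axl*, a receptor for dying cells, had 5.32 and 5.33 FPKM with RANKL + LEA, against 2.04 and 2.13 FPKM with RANKL and 16.3 and 14.9 FPKM without RANKL (log2 fold change 1.31, SE 0.12, limma adjusted p = 0.00148), and the related *Mertk* rose as well (0.82). *Apoe*, a lipid carrier, had 123 and 112 FPKM with RANKL + LEA, against 71.7 and 62.2 FPKM with RANKL and 2268 and 2475 FPKM without RANKL (log2 fold change 0.82, SE 0.11, limma adjusted p = 0.00805). *Siglec1*, a sialic acid-binding receptor, had 9.12 and 8.94 FPKM with RANKL + LEA, against 5.11 and 4.97 FPKM with RANKL and 101 and 89.0 FPKM without RANKL (log2 fold change 0.83, SE 0.11, limma adjusted p = 0.00616). *Apoe* and *Siglec1* thus rose while staying far below their level without RANKL. The number of rises was 6 without RANKL + LEA replicate 1 or RANKL replicate 1, 14 without RANKL + LEA replicate 2 and 5 without RANKL replicate 2. *Cd36*, *Msr1* and *Axl* kept the call without each of the 6 libraries. *Adgre1*, *Mertk* and *Apoe* lost the call without RANKL + LEA replicate 1 or either RANKL library (adjusted p up to 0.0943) and *Siglec1* without either RANKL library (p up to 0.061).

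*Lyz2*, lysozyme, had 6041 and 4497 FPKM with RANKL + LEA, against 3162 and 2539 FPKM with RANKL and 8083 and 11578 FPKM without RANKL (log2 fold change 0.88, SE 0.22, limma adjusted p = 0.0476), so it rose. *Csf1r*, the M-CSF receptor, had 325 and 322 FPKM with RANKL + LEA, against 350.1 and 351 FPKM with RANKL and 606 and 589 FPKM without RANKL (log2 fold change −0.12, SE 0.09, limma adjusted p = 0.523). *Cd68* had 469 and 479 FPKM with RANKL + LEA, against 616 and 583 FPKM with RANKL (log2 fold change −0.34, SE 0.10, limma adjusted p = 0.0854). For *Csf1r* and *Cd68* the treated libraries were the lower ones, without passing the test. *Cd14*, the lipopolysaccharide coreceptor, had 70.2 and 67.9 FPKM with RANKL + LEA, against 49.7 and 43.6 FPKM with RANKL and a log2 fold change of 0.57, just under the fold limit (limma adjusted p = 0.019). *Csf1r* shares 873 exon bases with *Hmgxb3* on the opposite strand. *Lyz2* lost the call without any 1 of the 4 with RANKL (adjusted p up to 0.303). *Lyz2* further lost the call with 3 of 10 other settings (adjusted p up to 0.0843).

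Scavenger and lectin receptors had 12 of 23 genes higher and 0 lower, with a median of 0.62. *Marco*, a scavenger receptor of tissue macrophages, had 1.93 and 2.19 FPKM with RANKL + LEA, against 0.308 and 0.294 FPKM with RANKL and 8.55 and 10.1 FPKM without RANKL (log2 fold change 2.43, SE 0.17, limma adjusted p = 6.4e-04). *Stab1*, stabilin-1, had 22.1 and 24.5 FPKM with RANKL + LEA, against 8.03 and 7.52 FPKM with RANKL and 176 and 164 FPKM without RANKL (log2 fold change 1.57, SE 0.11, limma adjusted p = 6.4e-04). *Clec4e*, the mycobacterial glycolipid receptor Mincle, had 24.9 and 19.7 FPKM with RANKL + LEA, against 5.80 and 5.32 FPKM with RANKL and 20.9 and 24.2 FPKM without RANKL (log2 fold change 1.97, SE 0.14, limma adjusted p = 7.9e-04). *Marco* and *Stab1* stayed below the cells without RANKL, and *Clec4e* overlapped them. *Clec4d*, the receptor that pairs with Mincle, had 161 and 137 FPKM with RANKL + LEA, against 59.1 and 61.0 FPKM with RANKL and 186 and 228 FPKM without RANKL (log2 fold change 1.30, SE 0.13, limma adjusted p = 0.00245). Of 7 Fc receptor genes, 2 rose and 0 fell (median 0.57). *Fcgr3*, an activating receptor for IgG, had 25.9 and 24.8 FPKM with RANKL + LEA, against 10.2 and 11.5 FPKM with RANKL and 118 and 132 FPKM without RANKL (log2 fold change 1.22, SE 0.11, limma adjusted p = 0.00172), and *Fcgr1*, the high-affinity receptor, had a log2 fold change of 1.03 (SE 0.15, limma adjusted p = 0.00909). Rises among the scavenger and lectin receptors numbered 8 without RANKL + LEA replicate 1, 10 without RANKL + LEA replicate 2, 7 without RANKL replicate 1 and 6 without RANKL replicate 2. *Marco*, *Stab1*, *Clec4e*, *Clec4d* and *Fcgr3* kept the call without each of the 6 libraries. *Fcgr1* lost the call without RANKL + LEA replicate 1 or RANKL replicate 1 (adjusted p up to 0.0614).

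Complement genes had 6 of 15 members higher and 0 lower (median 0.72). *C1qa*, *C1qb* and *C1qc*, the chains of C1q, lie side by side on chromosome 4 (chr4:136880145-136898844 in mm10) and rose by log2 fold changes of 1.05, 0.72 and 1.07. *C1qc* had 44.5 and 41.9 FPKM with RANKL + LEA, against 21.6 and 19.4 FPKM with RANKL and 215 and 261 FPKM without RANKL (log2 fold change 1.07, SE 0.12, limma adjusted p = 0.00423). *C5ar1*, the C5a receptor, had 26.4 and 26.6 FPKM with RANKL + LEA, against 8.40 and 7.99 FPKM with RANKL and 88.5 and 101 FPKM without RANKL (log2 fold change 1.68, SE 0.11, limma adjusted p = 6.2e-04). *C3ar1*, the C3a receptor, had 49.97 and 47.9 FPKM with RANKL + LEA, against 24.5 and 22.6 FPKM with RANKL and 128 and 133 FPKM without RANKL (log2 fold change 1.05, SE 0.10, limma adjusted p = 0.00172). All of these were higher than with RANKL alone and lower than without RANKL. *C3*, the central complement protein, differed in that RANKL had raised it, and it had 62.1 and 60.3 FPKM with RANKL + LEA, against 34.9 and 35.5 FPKM with RANKL and 6.76 and 6.30 FPKM without RANKL (log2 fold change 0.80, SE 0.10, limma adjusted p = 0.00530). The count of rises was 4 without RANKL + LEA replicate 1, 6 without RANKL + LEA replicate 2 and 3 without either RANKL library. *C5ar1* and *C3ar1* held the call without each of the 6 libraries. *C1qa* and *C1qb* lost the call without RANKL + LEA replicate 1 or either RANKL library (adjusted p up to 0.104), *C1qc* without RANKL replicate 2 (p up to 0.0564) and *C3* without RANKL replicate 1 (p up to 0.0507).

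Most chemokines tested rose. Of 17 tested, 10 were higher and 0 lower, with a median of 1.30. *Pf4*, the platelet factor that macrophages also make, had 44.1 and 36.7 FPKM with RANKL + LEA, against 11.6 and 10.3 FPKM with RANKL and 400.3 and 495 FPKM without RANKL (log2 fold change 1.87, SE 0.14, limma adjusted p = 0.00106). *Ccl6* had 51.5 and 42.8 FPKM with RANKL + LEA, against 18.9 and 19.2 FPKM with RANKL and 132 and 178 FPKM without RANKL (log2 fold change 1.30, SE 0.16, limma adjusted p = 0.00523). *Ccl7*, a monocyte attractant, had 1.71 and 1.6 FPKM with RANKL + LEA, against 0.475 and 0.597 FPKM with RANKL and 8.13 and 7.72 FPKM without RANKL (log2 fold change 1.47, SE 0.16, limma adjusted p = 0.00372). In each case the treated cells were between RANKL alone and no RANKL. *Ccl4* had 2.23 and 1.42 FPKM with RANKL + LEA, against 0.480 and 0.329 FPKM with RANKL and 13.6 and 18.2 FPKM without RANKL (log2 fold change 1.92, SE 0.26, limma adjusted p = 0.00693). *Ccl12* was at 0.394 and 0.456 FPKM with RANKL + LEA, against 0 and 0 FPKM with RANKL and 1.58 and 2.26 FPKM without RANKL, and no fold is given against libraries at 0. *Cxcl16*, a membrane-bound chemokine, had 74.1 and 73.1 FPKM with RANKL + LEA, against 48.96 and 44.7 FPKM with RANKL and 68.8 and 69.2 FPKM without RANKL (log2 fold change 0.65, SE 0.10, limma adjusted p = 0.00936), and 552 bases of its exons lie opposite *Zmynd15*. Its treated libraries were above both other groups. Chemokine rises numbered 6 without RANKL + LEA replicate 1, 8 without RANKL + LEA replicate 2, 3 without RANKL replicate 1 and 4 without RANKL replicate 2. *Pf4*, *Ccl7* and *Ccl12* kept the call without each of the 6 libraries. *Ccl6* and *Ccl4* lost the call without either RANKL library (adjusted p up to 0.0795) and *Cxcl16* without any 1 of the 4 with RANKL (p up to 0.0769). *Ccl12* was also not called with a pseudocount of 1.

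Toll-like receptors and their adaptors had 8 of 23 members higher and 1 lower (median 0.46). *Tlr2*, for bacterial lipoproteins, had 40.0 and 33.0 FPKM with RANKL + LEA, against 18.1 and 15.3 FPKM with RANKL and 23.0 and 25.1 FPKM without RANKL (log2 fold change 1.12, SE 0.14, limma adjusted p = 0.00510). *Tlr4*, for lipopolysaccharide, had 15.7 and 15.8 FPKM with RANKL + LEA, against 8.66 and 9.91 FPKM with RANKL and 19.6 and 18.6 FPKM without RANKL (log2 fold change 0.76, SE 0.11, limma adjusted p = 0.00925). *Tlr5*, for flagellin, had 2.09 and 2.02 FPKM with RANKL + LEA, against 0.735 and 0.655 FPKM with RANKL and 0.768 and 0.973 FPKM without RANKL (log2 fold change 1.44, SE 0.20, limma adjusted p = 0.00805). *Tlr2* and *Tlr5* with LEA were above both other groups, and *Tlr4* was below the cells without RANKL. The endosomal receptors for nucleic acids *Tlr7*, *Tlr8* and *Tlr13* rose by log2 fold changes of 0.88, 0.77 and 1.18. *Ticam1*, the adaptor TRIF, was the fall, with 6.61 and 5.99 FPKM with RANKL + LEA, against 10.4 and 9.03 FPKM with RANKL (log2 fold change −0.62, SE 0.12, limma adjusted p = 0.0249). The number of rises was 3 without RANKL + LEA replicate 1, 6 without RANKL + LEA replicate 2 and 2 without either RANKL library. *Tlr13* held the call without each of the 6 libraries. *Tlr5* and *Tlr7* lost the call without RANKL + LEA replicate 1 or either RANKL library (adjusted p up to 0.0756), *Tlr2* without RANKL replicate 2 (p up to 0.0585), *Tlr4* without RANKL + LEA replicate 1 or RANKL replicate 1 (p up to 0.0603) and *Tlr8* without either RANKL library (p up to 0.0554). *Ticam1* lost the call without any 1 of the 4 with RANKL (adjusted p up to 0.107). *Ticam1* further lost the call with a pseudocount of 1.

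Inflammatory cytokines and NF-κB feedback genes had 5 of 17 higher, 1 lower and a median of 0.25, with 3 higher and 0 lower under a replicate block. *Tnf* had 4.61 and 3.18 FPKM with RANKL + LEA, against 1.79 and 0.969 FPKM with RANKL and 6.89 and 10.3 FPKM without RANKL (log2 fold change 1.47, SE 0.31, limma adjusted p = 0.0309). *Tnfsf9*, the ligand of 4-1BB, had 1.93 and 1.35 FPKM with RANKL + LEA, against 0.410 and 0.334 FPKM with RANKL and 3.71 and 4.48 FPKM without RANKL (log2 fold change 1.87, SE 0.22, limma adjusted p = 0.00492). *Nlrp3*, the inflammasome sensor, had 6.24 and 6.47 FPKM with RANKL + LEA, against 3.77 and 3.90 FPKM with RANKL and 19.4 and 18.7 FPKM without RANKL (log2 fold change 0.71, SE 0.11, limma adjusted p = 0.0101). Both treated libraries of each were the higher ones. *Il1rn*, the IL-1 receptor antagonist, and *Tnfsf14*, also called LIGHT, rose by log2 fold changes of 0.59 and 1.03, and *Cd83* fell by 0.70 on the log2 scale. Rises numbered 1 without either RANKL + LEA library or RANKL replicate 1 and 0 without RANKL replicate 2. Of 32 chemokine and cytokine receptors, 3 rose and 1 fell (median 0.28), with 3 falls or, with voom, 4 under the other scalings. *Il7r*, the IL-7 receptor chain, had 6.15 and 5.99 FPKM with RANKL + LEA, against 1.03 and 1.19 FPKM with RANKL and 6.58 and 7.14 FPKM without RANKL (log2 fold change 2.35, SE 0.13, limma adjusted p = 4.5e-04). *Il21r* and *Il10ra* rose by log2 fold changes of 0.82 and 0.64. *Ccr1*, a chemokine receptor that RANKL had raised, had 45.7 and 35.8 FPKM with RANKL + LEA, against 65.2 and 57.6 FPKM with RANKL (log2 fold change −0.60, SE 0.14, limma adjusted p = 0.0406). *Il7r* and *Il21r* kept the call without each of the 6 libraries. *Tnf*, *Nlrp3*, *Il1rn* and *Il10ra* lost the call without any 1 of the 4 with RANKL (adjusted p up to 0.189), *Tnfsf14*, *Cd83* and *Ccr1* without any 1 library (p up to 0.184) and *Tnfsf9* without RANKL replicate 2 (p up to 0.0564). *Tnf* and *Il10ra* were also not called with no intensity trend (adjusted p up to 0.0653), *Il1rn* with 8 of 10 other settings (p up to 0.0722) and *Tnfsf14* with 4 of 10 other settings (p up to 0.0762). *Cd83* was also not called with 4 of 10 other settings (p up to 0.0992) and *Ccr1* with 3 of 10 other settings (p up to 0.0775).

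Enzymes and receptors of lipid mediators had 11 of 19 members higher and 1, *Akr1c18*, lower (median 0.72). *Ptgs1*, cyclooxygenase-1, had 26.6 and 24.4 FPKM with RANKL + LEA, against 11.8 and 10.5 FPKM with RANKL and 19.2 and 17.7 FPKM without RANKL (log2 fold change 1.19, SE 0.11, limma adjusted p = 0.00201). *Alox5*, 5-lipoxygenase, which makes leukotrienes, had 6.52 and 6.16 FPKM with RANKL + LEA, against 2.16 and 1.94 FPKM with RANKL and 1.23 and 1.30 FPKM without RANKL (log2 fold change 1.58, SE 0.14, limma adjusted p = 0.00151). *Alox5ap*, its membrane partner, had 118 and 100.0 FPKM with RANKL + LEA, against 60.8 and 54.2 FPKM with RANKL and 238 and 306 FPKM without RANKL (log2 fold change 0.92, SE 0.15, limma adjusted p = 0.0127). *Ptgs1* and *Alox5* were highest with RANKL + LEA of all 3 groups, and *Alox5ap* was highest without RANKL. *Pla2g7*, which inactivates platelet-activating factor, had 151 and 127 FPKM with RANKL + LEA, against 51.1 and 48.9 FPKM with RANKL and 64.6 and 72.4 FPKM without RANKL (log2 fold change 1.47, SE 0.12, limma adjusted p = 0.00118), again above both other groups. *Ptgir*, the prostacyclin receptor, had 2.27 and 2.20 FPKM with RANKL + LEA, against 0.994 and 0.984 FPKM with RANKL and 4.59 and 4.53 FPKM without RANKL (log2 fold change 1.10, SE 0.14, limma adjusted p = 0.00608). The rises numbered 4 without RANKL + LEA replicate 1 or either RANKL library and 7 without RANKL + LEA replicate 2. *Ptgs1*, *Alox5*, *Pla2g7* and *Ptgir* held the call without each of the 6 libraries. *Alox5ap* lost the call without RANKL + LEA replicate 1 or either RANKL library (adjusted p up to 0.113).

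Interferon-stimulated genes shifted upward by small amounts. Of 38 tested, 4 were called higher and 0 lower, while 33 had both treated libraries above both RANKL libraries, against 30.1% of all genes, and the median was 0.41. *Zbp1*, a sensor of nucleic acids, had 9.61 and 8.79 FPKM with RANKL + LEA, against 5.51 and 4.90 FPKM with RANKL and 7.84 and 8.68 FPKM without RANKL (log2 fold change 0.81, SE 0.12, limma adjusted p = 0.0106). *Oas3* had 28.1 and 27.0 FPKM with RANKL + LEA, against 18.3 and 17.3 FPKM with RANKL and 30.3 and 25.3 FPKM without RANKL (log2 fold change 0.63, SE 0.12, limma adjusted p = 0.0209). *Oas3*, *Oasl2* and *Ifit2* belong to the antiviral genes that interferon switches on. *Oasl2* had 31.7 and 26.6 FPKM with RANKL + LEA, against 18.6 and 19.6 FPKM with RANKL and 27.4 and 25.5 FPKM without RANKL (log2 fold change 0.61, SE 0.12, limma adjusted p = 0.0237). *Ifit2* had 8.19 and 6.51 FPKM with RANKL + LEA, against 4.30 and 4.03 FPKM with RANKL and 3.77 and 4.79 FPKM without RANKL (log2 fold change 0.79, SE 0.16, limma adjusted p = 0.029). The treated libraries of *Zbp1* and *Ifit2* were above both other groups, and those of *Oas3* and *Oasl2* overlapped the cells without RANKL. The number called was 0 without RANKL + LEA replicate 1 or either RANKL library, 3 without RANKL + LEA replicate 2 and 2 with the median of ratios. *Zbp1*, *Oasl2* and *Ifit2* lost the call without RANKL + LEA replicate 1 or either RANKL library (adjusted p up to 0.162) and *Oas3* without any 1 of the 4 with RANKL (p up to 0.127). *Oas3* further lost the call with the median of ratios, *Oasl2* with 6 of 10 other settings (p up to 0.0502) and *Ifit2* with no intensity trend (p up to 0.051).

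Promoter sequences were matched by symbol in RefSeq (GRCm38.p6, the assembly of mm10), where 8802 of the genes tested had a window of 250 bases before to 50 bases after the start. The interferon response motif GAAANNGAA, on either strand, was in 69.0% of the 29 interferon-stimulated promoters, against 7.27% of all. Part of the *Oas3* promoter (chr5:120777660-120777759, minus strand) is shown because its gene rose and it holds 2 overlapping matches, which begin 75 and 69 bases before the start. Capitals mark them.
Oas3: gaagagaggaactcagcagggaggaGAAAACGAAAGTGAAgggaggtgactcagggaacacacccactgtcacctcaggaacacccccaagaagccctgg
A match describes these letters and not a bound site.

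MHC class II and costimulation genes had 3 of 14 called higher and 0 lower (median 0.46). All 14 had both treated libraries above both RANKL libraries, against 30.1% of all genes. The number called was 0 without RANKL + LEA replicate 1 or either RANKL library, 1 without RANKL + LEA replicate 2 or either library without RANKL and 1 with the median of ratios or quantile normalization, and 0 with a replicate block. *H2-DMb2*, which helps load peptide on class II molecules, had 3.73 and 3.68 FPKM with RANKL + LEA, against 2.61 and 2.16 FPKM with RANKL and 2.66 and 2.60 FPKM without RANKL (log2 fold change 0.62, SE 0.15, limma adjusted p = 0.0407). *Ctss*, the protease that trims the invariant chain, had 234 and 184 FPKM with RANKL + LEA, against 136 and 131 FPKM with RANKL and 276 and 339 FPKM without RANKL (log2 fold change 0.64, SE 0.15, limma adjusted p = 0.0407). *Icosl*, a costimulatory ligand, had a log2 fold change of 0.94 (SE 0.22, limma adjusted p = 0.0405). *H2-Ab1*, a class II β chain, had 5.58 and 5.80 FPKM with RANKL + LEA, against 3.73 and 3.97 FPKM with RANKL and 3.89 and 3.81 FPKM without RANKL (log2 fold change 0.55, SE 0.12, limma adjusted p = 0.0316) and *Cd74*, the invariant chain, 90.9 and 100.0 FPKM with RANKL + LEA, against 69.9 and 72.9 FPKM with RANKL (log2 fold change 0.42, SE 0.10, limma adjusted p = 0.041), both under the fold limit. For *H2-Ab1* and *H2-DMb2* the cells with RANKL + LEA were above both other groups. *H2-DMb2* lost the call without any 1 library (adjusted p up to 0.177), *Ctss* without any 1 of the 4 with RANKL (p up to 0.211) and *Icosl* without RANKL + LEA replicate 1, either RANKL library or either library without RANKL (p up to 0.188). *H2-DMb2* was also not called with 8 of 10 other settings (adjusted p up to 0.0835), *Ctss* with 3 of 10 other settings (p up to 0.081) and *Icosl* with 5 of 10 other settings (p up to 0.0825).

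All 40 mitosis genes had a positive log2 fold change (median 0.55), 15 being called higher and 0 lower. In 37 both treated libraries were above both RANKL ones, against 30.1% of all genes. *Kif11*, the kinesin that separates spindle poles, had 20.4 and 19.6 FPKM with RANKL + LEA, against 13.7 and 12.5 FPKM with RANKL and 13.0 and 14.003 FPKM without RANKL (log2 fold change 0.61, SE 0.11, limma adjusted p = 0.0177). *Hmmr*, a spindle assembly factor, had 26.0 and 23.3 FPKM with RANKL + LEA, against 16.0 and 15.8 FPKM with RANKL and 9.60 and 10.6 FPKM without RANKL (log2 fold change 0.63, SE 0.11, limma adjusted p = 0.0176). *Nuf2*, a kinetochore protein, had 17.5 and 13.96 FPKM with RANKL + LEA, against 9.48 and 8.47 FPKM with RANKL and 12.7 and 14.3 FPKM without RANKL (log2 fold change 0.80, SE 0.14, limma adjusted p = 0.0178). *Kif11* and *Hmmr* with LEA were above both other groups. *Bub1*, a checkpoint kinase, had a log2 fold change of 0.66 (SE 0.12, limma adjusted p = 0.0177), *Prc1*, which bundles the central spindle, a log2 fold change of 0.78 and *Cdc25b*, a phosphatase that starts mitosis, one of 0.74. *Prc1* shares 670 exon bases with *Rccd1* on the other strand. The list's sign was the same under each scaling, but the number called was 1 without RANKL + LEA replicate 1, 4 without RANKL + LEA replicate 2, 0 without either RANKL library, 7 with TMM scaling or voom and 6 with the median of ratios or quantile normalization. *Hmmr*, *Nuf2*, *Prc1* and *Cdc25b* lost the call without RANKL + LEA replicate 1 or either RANKL library (adjusted p up to 0.129) and *Kif11* and *Bub1* without any 1 of the 4 with RANKL (p up to 0.110). *Kif11* further lost the call with 5 of 10 other settings and *Hmmr* with the median of ratios or quantile normalization.

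In DNA replication, 3 of 48 genes were called higher, near the 4.54% of all genes, and 0 lower, with a median of 0.37. *Rrm2*, a subunit of ribonucleotide reductase, had 35.6 and 33.0 FPKM with RANKL + LEA, against 22.5 and 20.497 FPKM with RANKL and 38.8 and 44.3 FPKM without RANKL (log2 fold change 0.67, SE 0.11, limma adjusted p = 0.0146). *Tk1*, thymidine kinase, had 49.9 and 43.8 FPKM with RANKL + LEA, against 32.3 and 27.0 FPKM with RANKL and 52.8 and 65.3 FPKM without RANKL (log2 fold change 0.66, SE 0.14, limma adjusted p = 0.0333). *E2f2*, an E2F transcription factor, had 2.98 and 3.02 FPKM with RANKL + LEA, against 1.62 and 1.54 FPKM with RANKL and 7.94 and 8.09 FPKM without RANKL (log2 fold change 0.88, SE 0.12, limma adjusted p = 0.00813). All 3 were higher without overlap. *Pcna*, the polymerase clamp, had 145 and 132 FPKM with RANKL + LEA, against 103 and 88.6 FPKM with RANKL and did not pass the fold limit (log2 fold change 0.53, SE 0.12, limma adjusted p = 0.0372). Unlike *Kif11* and *Hmmr*, these genes were highest without RANKL. Of 20 cyclins and inhibitors of the cell cycle's first gap phase, 5 rose and 0 fell (median 0.28), namely *Ccnd1* (0.81), which encodes cyclin D1, *E2f8* (0.82), *E2f7* (0.73), *Rbl1* (0.69) and *Cdkn2d* (0.79). *Cdkn1a*, the inhibitor p21, had a log2 fold change of 0.48, under the fold limit, and 0 of 21 p53 targets were called. Rises in replication numbered 0 without RANKL + LEA replicate 1 or RANKL replicate 2 and 1 without RANKL + LEA replicate 2 or RANKL replicate 1, and among the cyclins and inhibitors 1 without RANKL + LEA replicate 1 or RANKL replicate 1, 2 without RANKL + LEA replicate 2 and 0 without RANKL replicate 2. *Rrm2*, *Tk1* and *Rbl1* lost the call without any 1 of the 4 with RANKL (adjusted p up to 0.193), *E2f2*, *Ccnd1* and *Cdkn2d* without RANKL + LEA replicate 1 or either RANKL library (p up to 0.119), *E2f8* without RANKL + LEA replicate 2 or RANKL replicate 2 (p up to 0.0715) and *E2f7* without any 1 library (p up to 0.140). *Tk1* was also not called with no intensity trend (adjusted p up to 0.0697) and *E2f7* with 5 of 10 other settings (p up to 0.0812).

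In the promoters of the mitosis list, the cell cycle homology region TTTGAA was found on either strand in 71.9% of 32 windows, against 11.99% of all, and the box CCAAT in 78.1%, against 39.2%. E2F motifs (TTGGCGC or TTCCCGC) were in 51.4% of 35 replication promoters, against 12.8% of all. Those of *Kif11* (chr19:37376302-37376381, plus strand, a match 19 bases before the start) and *Hmmr* (chr11:40733438-40733617, minus strand, 5 CCAAT matches) show the arrangement in mitotic genes that rose. Capitals mark TTTGAA in *Kif11* and CCAAT in *Hmmr*, read here from the other strand as TTCAAA and ATTGG.
Kif11: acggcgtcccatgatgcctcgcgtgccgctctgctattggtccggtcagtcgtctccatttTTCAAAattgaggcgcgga
Hmmr: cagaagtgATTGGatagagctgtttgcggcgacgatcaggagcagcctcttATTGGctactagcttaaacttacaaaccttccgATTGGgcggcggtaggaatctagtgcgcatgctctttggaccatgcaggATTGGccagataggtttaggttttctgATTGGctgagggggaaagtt
These shares describe gene families as such and not the members called.

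NRF2 is the transcription factor that turns antioxidant and detoxification genes on when its inhibitor KEAP1 is modified by electrophiles. Of 28 NRF2 targets tested, 12 were higher and 0 lower, with a median of 0.59. *Nqo1*, a quinone reductase (chr8:107388225-107403205 in mm10), had 30.0 and 26.4 FPKM with RANKL + LEA, against 6.20 and 5.67 FPKM with RANKL and 5.42 and 7.07 FPKM without RANKL (log2 fold change 2.23, SE 0.15, limma adjusted p = 6.4e-04). *Gclm*, a subunit of the rate-limiting enzyme of glutathione synthesis, had 51.2 and 44.9 FPKM with RANKL + LEA, against 21.7 and 22.1 FPKM with RANKL and 81.6 and 93.1 FPKM without RANKL (log2 fold change 1.13, SE 0.11, limma adjusted p = 0.00245). *Osgin1* had 8.30 and 6.95 FPKM with RANKL + LEA, against 3.49 and 2.72 FPKM with RANKL and 7.11 and 7.495 FPKM without RANKL (log2 fold change 1.28, SE 0.16, limma adjusted p = 0.00530). *Nqo1* with LEA was far above both other groups, whereas *Gclm* was below the cells without RANKL. *Gsta3* and *Mgst1* encode glutathione transferases. *Gsta3* had 2.19 and 1.73 FPKM with RANKL + LEA, against 0.215 and 0.347 FPKM with RANKL and 1.12 and 1.23 FPKM without RANKL (log2 fold change 2.45, SE 0.25, limma adjusted p = 0.00252). *Mgst1* had 9.55 and 7.61 FPKM with RANKL + LEA, against 2.56 and 3.53 FPKM with RANKL and 20.7 and 26.5 FPKM without RANKL (log2 fold change 1.47, SE 0.20, limma adjusted p = 0.00652). *Slc7a11*, the cystine importer, had 0.865 and 1.22 FPKM with RANKL + LEA, against 0.407 and 0.424 FPKM with RANKL and 0.300 and 0.326 FPKM without RANKL (log2 fold change 1.13, SE 0.27, limma adjusted p = 0.0443). *Gsta3* and *Slc7a11* thus stood above both other groups, and *Mgst1* below the cells without RANKL. *Nfe2l2*, which encodes NRF2 itself, had 45.9 and 43.8 FPKM with RANKL + LEA, against 35.2 and 30.8 FPKM with RANKL (log2 fold change 0.44, SE 0.11, limma adjusted p = 0.0529). The number of rises was 6 without RANKL + LEA replicate 1, 7 without RANKL + LEA replicate 2 and 5 without either RANKL library. *Nqo1*, *Gclm*, *Osgin1* and *Gsta3* kept the call without each of the 6 libraries. *Mgst1* lost the call without RANKL replicate 1 (adjusted p up to 0.0571) and *Slc7a11* without any 1 library (p up to 0.190). *Slc7a11* further lost the call with 5 of 10 other settings (adjusted p up to 0.067).

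Targets of the aryl hydrocarbon receptor, which senses planar aromatic compounds, had 4 of 9 genes higher and 0 lower (median 0.51). *Ahrr*, the repressor of this receptor and one of its targets, had 32.6 and 29.6 FPKM with RANKL + LEA, against 15.7 and 15.0 FPKM with RANKL and 4.12 and 4.53 FPKM without RANKL (log2 fold change 1.01, SE 0.11, limma adjusted p = 0.00350). *Cyp1b1*, a cytochrome P450, had 1.15 and 1.16 FPKM with RANKL + LEA, against 0.192 and 0.210 FPKM with RANKL and 0.307 and 0.226 FPKM without RANKL (log2 fold change 2.06, SE 0.28, limma adjusted p = 0.00735). In both genes the cells with RANKL + LEA were above both other groups. *Tiparp*, a further target, had 14.7 and 12.2 FPKM with RANKL + LEA, against 9.82 and 9.01 FPKM with RANKL (log2 fold change 0.50, SE 0.14, limma adjusted p = 0.0731), and *Cyp1a1* did not reach the filter. The other calls were *Nqo1* and *Ugt1a6a*, a UDP-glucuronosyltransferase. The 8 Ugt1a genes tested span chr1:88055411-88220002 and rose together, *Ugt1a1* with 61.2 and 53.6 FPKM with RANKL + LEA, against 28.0 and 27.8 FPKM with RANKL and 48.6 and 61.6 FPKM without RANKL (log2 fold change 1.04, SE 0.13, limma adjusted p = 0.00616). They share exons of 871 bases, so the same reads were counted for each of them and their 8 calls are not separate. With *Gstm1*, another glutathione transferase (named after its values were seen), they made up the 9 rises among 17 genes of phase II conjugation (median 0.73). Rises of receptor targets numbered 3 without RANKL + LEA replicate 1, 4 without RANKL + LEA replicate 2 and 2 without either RANKL library, and phase II rises 9 without RANKL + LEA replicate 1, 8 without RANKL + LEA replicate 2 and 0 without either RANKL library. *Ahrr* held the call without each of the 6 libraries. *Cyp1b1* lost the call without RANKL + LEA replicate 1 or either RANKL library (adjusted p up to 0.0555) and *Ugt1a1* without either RANKL library (p up to 0.0715).

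Of the promoters of NRF2 targets, 33.3% of 24 held the antioxidant response element core TGACNNNGC on either strand, against 15.1% of all, and 62.5% of 8 promoters of aryl hydrocarbon receptor targets held the xenobiotic response element core GCGTG, against 52.97% of all. The *Nqo1* window held neither motif. Matches begin 134, 121 and 56 bases before the start in *Gclm* (chr3:122245407-122245556, plus), *Gsta3* (chr1:21240435-21240584, plus) and *Mgst1* (chr6:138140427-138140526, plus), whose genes rose. *Ahrr* (chr13:74292332-74292451, minus) has matches at 107, 82 and 27 bases and *Cyp1b1* (chr17:79715062-79715161, minus) at 76. Capitals mark the motif, which is read from the other strand in *Gclm*, *Mgst1* and *Cyp1b1*.
Gclm: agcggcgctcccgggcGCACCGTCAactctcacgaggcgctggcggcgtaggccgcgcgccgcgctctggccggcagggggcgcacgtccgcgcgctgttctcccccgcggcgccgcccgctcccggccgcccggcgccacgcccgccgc
Gsta3: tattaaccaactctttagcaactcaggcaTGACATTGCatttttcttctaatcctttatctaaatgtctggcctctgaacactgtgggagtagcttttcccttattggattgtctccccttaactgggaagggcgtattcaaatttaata
Mgst1: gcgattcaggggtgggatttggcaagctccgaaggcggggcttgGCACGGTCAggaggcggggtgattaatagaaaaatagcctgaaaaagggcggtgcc
Ahrr: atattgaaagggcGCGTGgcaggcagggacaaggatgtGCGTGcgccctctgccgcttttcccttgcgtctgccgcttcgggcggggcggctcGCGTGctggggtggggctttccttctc
Cyp1b1: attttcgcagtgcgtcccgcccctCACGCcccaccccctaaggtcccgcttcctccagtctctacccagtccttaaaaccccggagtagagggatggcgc
The matches were not tested for binding.

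Where the mean reached 2 FPKM, the largest rise was that of *Ly6a* (chr15:74994877-74998031 in mm10), which encodes the surface protein Sca-1, with 106 and 76.4 FPKM with RANKL + LEA, against 12.4 and 10.7 FPKM with RANKL and 18.2 and 17.5 FPKM without RANKL (log2 fold change 2.96, SE 0.16, limma adjusted p = 4.4e-04). *Gpr141*, an orphan receptor, had 6.30 and 5.70 FPKM with RANKL + LEA, against 1.01 and 0.894 FPKM with RANKL and 0.648 and 0.526 FPKM without RANKL (log2 fold change 2.54, SE 0.18, limma adjusted p = 6.9e-04). *Acod1*, which makes the antibacterial metabolite itaconate, had 4.15 and 3.44 FPKM with RANKL + LEA, against 0.706 and 0.459 FPKM with RANKL and 1.37 and 1.38 FPKM without RANKL (log2 fold change 2.53, SE 0.22, limma adjusted p = 0.00137). These 3 genes were higher with RANKL + LEA than in both other groups. So were *Gsdme*, a gasdermin that can form membrane pores (1.63), *Aoah*, which deacylates lipopolysaccharide (1.95), and *Hal*, histidine ammonia-lyase (2.02). Of 8 genes of the Ly6 and Ifitm families, 2 rose and 0 fell (median 0.94). Beside *Ly6a* the rise was *Ifitm1*, which restricts virus entry, with 3.00 and 2.71 FPKM with RANKL + LEA, against 0.564 and 0.735 FPKM with RANKL and 0.339 and 0.669 FPKM without RANKL (log2 fold change 1.99, SE 0.29, limma adjusted p = 0.00936). *Ly6a*, *Gpr141*, *Acod1*, *Gsdme*, *Aoah* and *Hal* kept the call without each of the 6 libraries. *Ifitm1* lost the call without RANKL + LEA replicate 1 or either RANKL library (adjusted p up to 0.0723).

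Other large rises left genes level with or below the cells without RANKL. *Npy*, neuropeptide Y, had 22.6 and 22.2 FPKM with RANKL + LEA, against 5.11 and 5.29 FPKM with RANKL and 22.2 and 22.2 FPKM without RANKL (log2 fold change 2.09, SE 0.10, limma adjusted p = 4.4e-04). *Cd93*, a surface lectin-like receptor, had 42.7 and 45.4 FPKM with RANKL + LEA, against 13.2 and 12.7 FPKM with RANKL and 139.7 and 141 FPKM without RANKL (log2 fold change 1.76, SE 0.10, limma adjusted p = 4.4e-04). *Igf1*, insulin-like growth factor 1, had 8.73 and 8.95 FPKM with RANKL + LEA, against 2.38 and 3.13 FPKM with RANKL and 126 and 124 FPKM without RANKL (log2 fold change 1.66, SE 0.14, limma adjusted p = 0.00122). *Npy* was level with the cells without RANKL, and *Cd93* and *Igf1* stayed below them. *Ms4a7*, a macrophage membrane protein, had 32.3 and 25.7 FPKM with RANKL + LEA, against 7.07 and 8.40 FPKM with RANKL and 70.7 and 79.5 FPKM without RANKL (log2 fold change 1.89, SE 0.15, limma adjusted p = 0.00110). *Angptl2*, a secreted angiopoietin-like protein, *Gcnt1*, a glycosyltransferase, and *S1pr1*, a receptor for sphingosine 1-phosphate, rose by log2 fold changes of 1.92, 1.87 and 1.58 and also stayed below the starting level. *Npy*, *Cd93*, *Igf1*, *Angptl2*, *Ms4a7*, *Gcnt1* and *S1pr1* held the call without each of the 6 libraries.

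**Figure D3:**
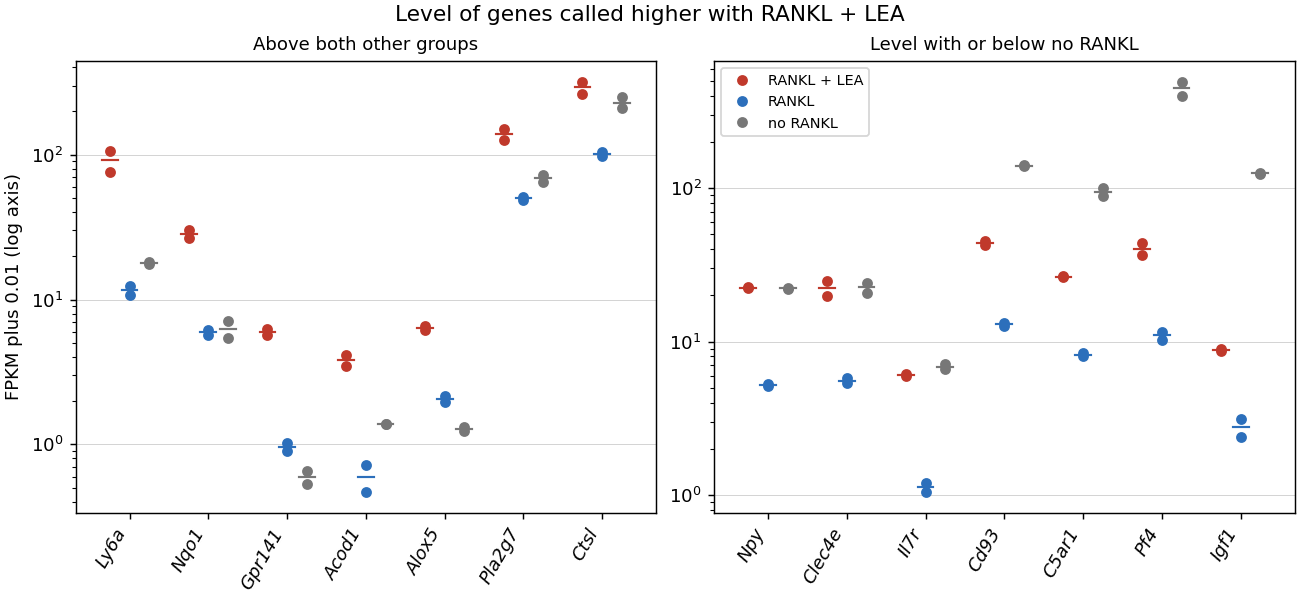
FPKM plus 0.01 (log axis) of genes called higher, in each library, with the mean as a bar and RANKL + LEA in red, RANKL in blue and no RANKL in grey. On the left both red points lie above all blue and grey points, and on the right they lie above the blue points and level with or below the grey ones.

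Lysosomal genes split by direction. Of 43 tested, 7 rose and 4 fell (median −0.07). *Ctsl*, cathepsin L, had 319 and 264 FPKM with RANKL + LEA, against 105 and 98.2 FPKM with RANKL and 209.8 and 248 FPKM without RANKL (log2 fold change 1.52, SE 0.13, limma adjusted p = 0.00137). *Lamp2*, a lysosomal membrane protein, had 93.7 and 79.4 FPKM with RANKL + LEA, against 57.6 and 49.7 FPKM with RANKL and 92.7 and 105 FPKM without RANKL (log2 fold change 0.69, SE 0.13, limma adjusted p = 0.0213). *Lipa*, the acid lipase, had 291 and 248 FPKM with RANKL + LEA, against 176 and 158 FPKM with RANKL and 442 and 494 FPKM without RANKL (log2 fold change 0.69, SE 0.12, limma adjusted p = 0.0177). *Ctsl* was above both other groups. The falls were the osteoclast enzymes *Acp5* and *Ctsk*, already given, *Arsb*, a sulfatase (−0.81), and *Smpd1*, acid sphingomyelinase (−0.65). *Arsb* overlaps *Gm26527* by 1719 exon bases and *Ctsl* overlaps *Gm47123* by 977, on opposite strands. Rises numbered 1 without RANKL + LEA replicate 1 or either RANKL library and 3 without RANKL + LEA replicate 2, and falls 1 without RANKL + LEA replicate 1, 0 without RANKL + LEA replicate 2 or RANKL replicate 1 and 2 without RANKL replicate 2. *Ctsl* kept the call without each of the 6 libraries. *Lamp2* and *Lipa* lost the call without RANKL + LEA replicate 1 or either RANKL library (adjusted p up to 0.138), *Arsb* without either RANKL + LEA library or RANKL replicate 1 (p up to 0.0705) and *Smpd1* without any 1 of the 4 with RANKL (p up to 0.0979).

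In iron handling, 4 of 16 genes rose and 1 fell (median 0.39, but −0.0039 with quantile normalization). *Slc11a1*, the phagosomal metal transporter NRAMP1, had 65.7 and 73.2 FPKM with RANKL + LEA, against 23.7 and 24.8 FPKM with RANKL and 159 and 157 FPKM without RANKL (log2 fold change 1.51, SE 0.10, limma adjusted p = 6.4e-04). *Fth1*, the ferritin heavy chain, had 2674 and 3107 FPKM with RANKL + LEA, against 1788 and 1761 FPKM with RANKL and 7211 and 7124 FPKM without RANKL (log2 fold change 0.70, SE 0.12, limma adjusted p = 0.0155). *Hmox1*, which breaks down haem, had 44.5 and 42.6 FPKM with RANKL + LEA, against 28.9 and 24.1 FPKM with RANKL and 252 and 272 FPKM without RANKL (log2 fold change 0.72, SE 0.12, limma adjusted p = 0.0127). The exporter ferroportin, *Slc40a1*, rose as well (0.81), and all 4 stayed below the cells without RANKL. *Steap4*, a metalloreductase that RANKL had raised, fell, with 5.00 and 4.63 FPKM with RANKL + LEA, against 10.0 and 8.09 FPKM with RANKL (log2 fold change −0.89, SE 0.18, limma adjusted p = 0.0261). The number of rises was 1 without RANKL + LEA replicate 1 or RANKL replicate 2 and 2 without RANKL + LEA replicate 2 or RANKL replicate 1. *Slc11a1* held the call without each of the 6 libraries. *Fth1* and *Steap4* lost the call without any 1 of the 4 with RANKL (adjusted p up to 0.151), *Hmox1* without either RANKL + LEA library or RANKL replicate 2 (p up to 0.0906) and *Slc40a1* without RANKL + LEA replicate 1 or either RANKL library (p up to 0.130). *Slc40a1* was also not called with a pseudocount of 1 or only the 4 libraries with RANKL fitted (adjusted p up to 0.0585) and *Steap4* with a pseudocount of 0.01 (p up to 0.076).

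Of 26 genes of glycolysis and glucose uptake, 3 rose and 1 fell (median 0.15). *Slc2a6*, a lysosomal hexose transporter, had 27.5 and 26.6 FPKM with RANKL + LEA, against 12.8 and 12.7 FPKM with RANKL and 17.6 and 15.8 FPKM without RANKL (log2 fold change 1.08, SE 0.10, limma adjusted p = 0.00213), and *Slc16a3*, the lactate exporter MCT4, had 26.8 and 28.3 FPKM with RANKL + LEA, against 15.8 and 14.2 FPKM with RANKL and 22.8 and 20.9 FPKM without RANKL (log2 fold change 0.87, SE 0.11, limma adjusted p = 0.00552). Both were above both other groups. *Slc2a3*, a glucose transporter, rose (0.67), and *Ldhb*, lactate dehydrogenase B, had a log2 fold change of −0.72 (SE 0.17, limma adjusted p = 0.0416). Of 30 genes of fatty acid synthesis and storage, 3 rose and 2, *Scd2* and *Acsl3*, fell (median 0.06). The rises were *Fabp3*, a fatty acid-binding protein (1.87), *Lipa* and *Me1*, malic enzyme (0.62). Cholesterol synthesis had 0 of 24 genes called (median 0.04), and LXR targets and lipid efflux had 1 of 16, *Apoe*. *Slc2a6* kept the call without each of the 6 libraries. *Slc2a3*, *Ldhb* and *Me1* lost the call without any 1 library (adjusted p up to 0.189), *Slc16a3* without RANKL replicate 2 (p up to 0.0564) and *Fabp3* without RANKL + LEA replicate 1 or RANKL replicate 2 (p up to 0.0582). *Slc2a3* further lost the call with 5 of 10 other settings (adjusted p up to 0.0688), *Ldhb* with no intensity trend (p up to 0.0544) and *Me1* with 9 of 10 other settings (p up to 0.0813).

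Of 22 genes of serine synthesis and amino acid transport, 4 rose and 1 fell (median 0.19), and 2 rose with quantile normalization. *Slc7a8*, a neutral amino acid transporter, had 33.4 and 39.4 FPKM with RANKL + LEA, against 16.3 and 15.7 FPKM with RANKL and 130.1 and 110.0 FPKM without RANKL (log2 fold change 1.17, SE 0.13, limma adjusted p = 0.00337). *Slc7a2*, a transporter of arginine and lysine, had 4.07 and 4.88 FPKM with RANKL + LEA, against 1.84 and 1.99 FPKM with RANKL and 0.644 and 0.462 FPKM without RANKL (log2 fold change 1.18, SE 0.20, limma adjusted p = 0.0146). *Slc1a5*, the glutamine transporter ASCT2, fell, with 52.98 and 49.4 FPKM with RANKL + LEA, against 82.2 and 72.5 FPKM with RANKL (log2 fold change −0.59, SE 0.11, limma adjusted p = 0.0177). *Slc7a2* was above both other groups, and *Slc7a8* was below the cells without RANKL. *Slc7a7*, another exchanger of this family, rose (0.60), and the remaining rise was *Slc7a11*. Enzymes of itaconate, arginine and polyamines had 3 of 14 genes higher and 0 lower (median −0.02). Beside *Acod1* they were *Ass1*, argininosuccinate synthase, with 62.3 and 70.3 FPKM with RANKL + LEA, against 30.4 and 32.9 FPKM with RANKL and 31.4 and 21.3 FPKM without RANKL (log2 fold change 1.06, SE 0.18, limma adjusted p = 0.014), and *Smox*, spermine oxidase, with 81.8 and 78.9 FPKM with RANKL + LEA, against 51.1 and 39.9 FPKM with RANKL and 13.6 and 15.9 FPKM without RANKL (log2 fold change 0.83, SE 0.14, limma adjusted p = 0.0155). *Slc7a8* held the call without each of the 6 libraries. *Slc7a2*, *Slc7a7*, *Slc1a5* and *Ass1* lost the call without any 1 of the 4 with RANKL (adjusted p up to 0.102) and *Smox* without either RANKL + LEA library or RANKL replicate 2 (p up to 0.0971). *Slc7a7* was also not called with 6 of 10 other settings and *Slc1a5* with a pseudocount of 1.

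Extracellular proteases and their inhibitors had 5 of 17 genes higher and 3 lower (median 0.32). Rises numbered 3 without any 1 of the 4 with RANKL, and falls 2 without RANKL + LEA replicate 1 and 1 without RANKL + LEA replicate 2 or either RANKL library. *Mmp8*, the collagenase of neutrophils and macrophages, had 3.19 and 2.88 FPKM with RANKL + LEA, against 0.335 and 0.327 FPKM with RANKL and 2.52 and 3.15 FPKM without RANKL (log2 fold change 2.86, SE 0.18, limma adjusted p = 6.2e-04). *Mmp12*, macrophage elastase, had 15.3 and 11.4 FPKM with RANKL + LEA, against 4.76 and 4.45 FPKM with RANKL and 15.9 and 17.6 FPKM without RANKL (log2 fold change 1.501, SE 0.15, limma adjusted p = 0.00245). *Adam15*, a membrane disintegrin, had 51.3 and 55.1 FPKM with RANKL + LEA, against 30.4 and 29.5 FPKM with RANKL and 203 and 196 FPKM without RANKL (log2 fold change 0.83, SE 0.10, limma adjusted p = 0.00423). These rises, with *Adam8* and *Plaur*, the urokinase receptor (0.66), stood beside the falls of *Mmp9*, *Mmp14* and *Serpine2*. Of 11 factors that osteoclasts send to bone-forming cells, 2 rose, *Igf1* and *C3*, and 2 fell, *Sphk1* and *Spns2* (median −0.24). *Spns2*, the exporter of sphingosine 1-phosphate, had 14.8 and 16.1 FPKM with RANKL + LEA, against 28.5 and 24.8 FPKM with RANKL and 0.078 and 0.045 FPKM without RANKL (log2 fold change −0.78, SE 0.15, limma adjusted p = 0.0239). Its treated libraries lay between RANKL alone and no RANKL. *Mmp8*, *Mmp12* and *Adam15* kept the call without each of the 6 libraries. *Plaur* and *Spns2* lost the call without any 1 of the 4 with RANKL (adjusted p up to 0.204). *Plaur* further lost the call with no intensity trend (adjusted p up to 0.0722) and *Spns2* with a pseudocount of 0.01 (p up to 0.0814).

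Stress lists other than NRF2 were short, and 4.54% of all genes were called higher. The unfolded protein and integrated stress response had 1 of 25 genes higher and 0 lower (median 0.05), the rise being *Atf3*, with 9.90 and 7.84 FPKM with RANKL + LEA, against 4.49 and 3.65 FPKM with RANKL and 22.8 and 28.2 FPKM without RANKL (log2 fold change 1.10, SE 0.17, limma adjusted p = 0.0109). Heat shock genes and metallothioneins with zinc transporters each had 0 of 12 called (medians −0.11 and 0.03). Immediate early genes had 2 of 21 higher and 0 lower (median 0.08), *Atf3* and *Klf4*, a zinc finger factor with 8.45 and 7.81 FPKM with RANKL + LEA, against 4.78 and 4.74 FPKM with RANKL and 1.73 and 1.96 FPKM without RANKL (log2 fold change 0.76, SE 0.13, limma adjusted p = 0.015). *Klf4* was above both other groups and *Atf3* below the cells without RANKL. Of 14 circadian clock genes, *Bhlhe41* rose (1.03) and *Bhlhe40* fell. Of 20 genes of the BCL2 family and survival, 1 fell, *Bcl2a1b* (−0.76), which has near-identical copies, and 0 rose. Clustered histone genes, whose transcripts mostly lack poly(A) tails, had 1 of 20 lower, *Hist1h2bc* (−0.83), and 0 higher (median 0.72). The number called higher was 4 without RANKL + LEA replicate 2, 4 with a replicate block, 2 or 1 without a library of cells without RANKL and 1 with quantile normalization, which also gave 2 falls. *Runx2*, one of 4 stromal markers tested, had 1.97 and 2.42 FPKM with RANKL + LEA, against 1.04 and 1.204 FPKM with RANKL and 0.835 and 0.779 FPKM without RANKL (log2 fold change 0.90, SE 0.19, limma adjusted p = 0.0316). *Klf4*, *Bhlhe41*, *Bcl2a1b* and *Runx2* lost the call without any 1 of the 4 with RANKL (adjusted p up to 0.205), *Atf3* without RANKL + LEA replicate 1 or either RANKL library (p up to 0.098) and *Hist1h2bc* without any 1 library (p up to 0.180). *Bhlhe41* was also not called with a pseudocount of 1 or only the 4 libraries with RANKL fitted (adjusted p up to 0.0575), *Bcl2a1b* with no intensity trend or a replicate block (p up to 0.0782) and *Hist1h2bc* with 3 of 10 other settings (p up to 0.0809). *Runx2* lost the call with quantile normalization (p up to 0.0633).

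**Figure D4:**
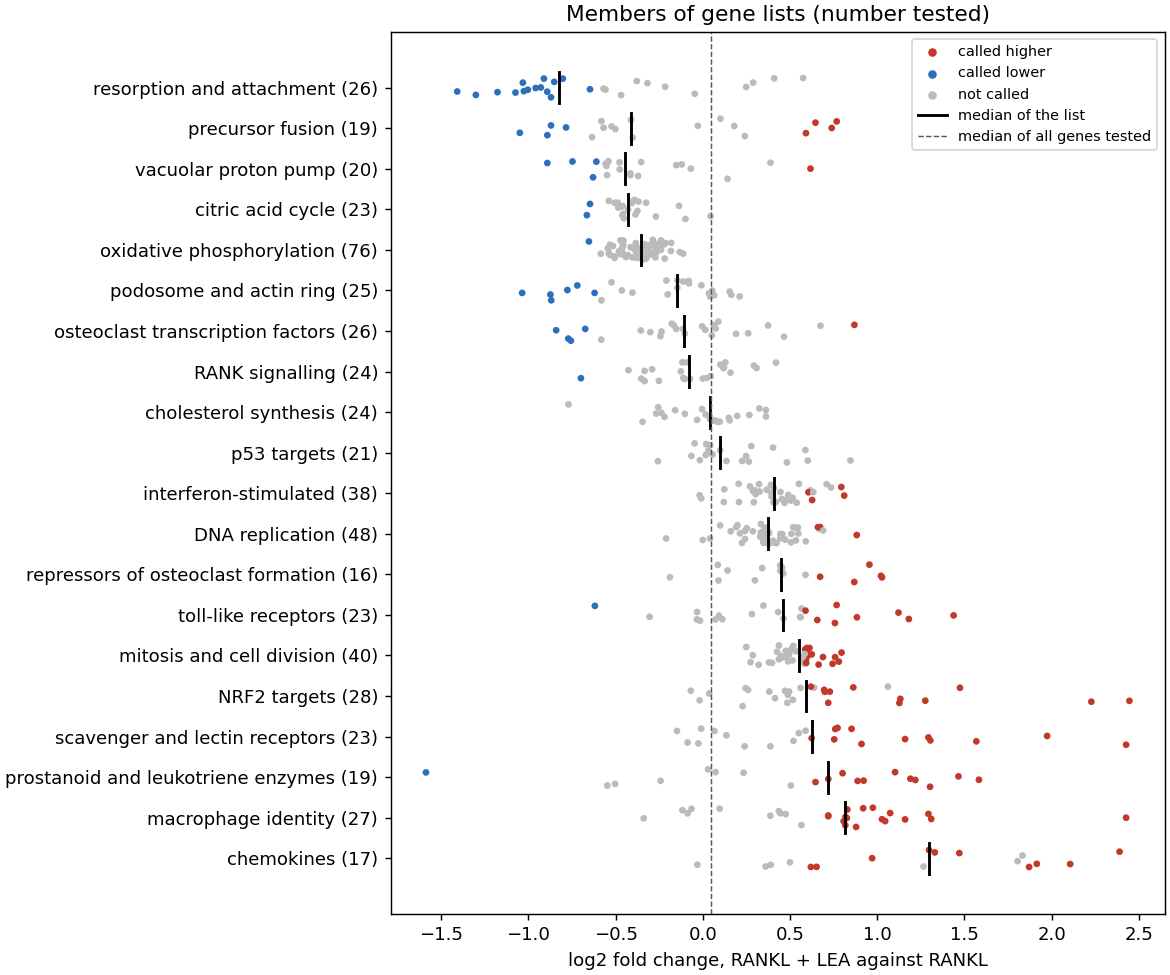
Log2 fold change, RANKL + LEA over RANKL, of each tested member of 20 gene lists, with the number tested after the list's name, called rises in red, called falls in blue and genes not called in grey. Black bars mark list medians and the dashed line marks the median of all genes, 0.05, and the lists run from resorption at −0.83 to chemokines at 1.30.

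Called genes were also described by features, of which FPKM entered the calls. Their exons were about as long as those of all genes, with a median of 2683.5 bases for rises and 2748 bases for falls, against 2621 bases for all genes tested. Falls were expressed higher in the 4 libraries with RANKL, at a median of 11.0 FPKM, than rises, at 5.76 FPKM, and all genes were at 7.99 FPKM. Without RANKL the order was the other way, with a median of 1.91 FPKM for falls, 10.7 FPKM for rises and 7.61 FPKM for all genes. The share called lower was 0.535% under 1 FPKM and 3.70% over 100 FPKM, and the share called higher was 6.08% between 1 and 5 FPKM and 3.11% over 100 FPKM. Promoters of rises had a median GC content of 57.0% (390 windows), those of falls 62.8% (140 windows) and all windows 61.0%. TATAAA was in 14.4% of promoters of rises and 3.57% of those of falls, against 6.68% of all, and GCGTG was in 35.6% of promoters of rises and 55.0% of those of falls, against 52.97% of all. AP-1 (TGANTCA, which can share its first bases with TGACNNNGC) was in 9.23% of promoters of rises and 6.43% of those of falls, against 5.17% of all. Shares of NF-κB (GGGNNTTCC) were 6.67%, 4.29% and 7.75% for rises, falls and all, those of the E-box CACGTG 7.18%, 7.14% and 10.4%, and those of the Ets motif GGAAGT 25.6%, 22.9% and 31.0%. Every motif was searched on both strands. These shares are descriptions, with no test, and a motif's frequency follows base composition.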

How the data were processed

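RNA from 6 libraries (2 per group) was sequenced on an Illumina HiSeq. The authors aligned reads with HISAT2 to mm10 (study's methods) and, per the command in the file header, counted them over exons of both strands with HOMER's analyzeRepeats.pl, which gave the deposited FPKM values, so overlapping genes on opposite strands are not told apart. No version of these tools was found. The deposited table also holds 2 columns of the authors' gene lists, which were not used, and 26 symbols that a spreadsheet had turned into dates were restored. The authors tested with DESeq2; since FPKM values are not counts, limma 3.58.1 in R 4.3.3 was used here on log2(FPKM + 0.1), with a mean per group, all 6 libraries sharing the spread, an intensity trend and Benjamini-Hochberg adjustment over 11905 genes. The pseudocount understates changes of low genes. Reads per library were recovered from the step between low FPKM values (all whole within 0.1 read). Groups followed the labels.

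Members, the 47 gene lists and the 10 marker lists were chosen with earlier results of these data known. Genes named are the 20 largest rises and falls among called genes of at least 2 FPKM whose groups do not overlap, genes named in the study's results, up to 6 genes of each list with the smallest p, marker genes of at least 1 FPKM, and all called members of a list where 5 or fewer were called in a direction, except that some genes these rules name are not reported here. Code was tested on simulated data. Besides the settings given in Results, other filters, models and fold limits were tried. Promoters came from RefSeq GRCm38.p6. Plots and lists used Python 3.11.15, numpy 2.4.6, pandas 2.3.3 and matplotlib 3.10.9.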

Additional observations from a re-analysis of the deposited data

How the results depend on the processing

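No gene called in the main comparison changed sign under any alternative. The main counts were 540 rises and 211 falls. Testing every gene with a value above 0 (18561 genes) gave 210 and 81, a fold limit of 2 gave 195 and 53, and no fold limit gave 706 and 321. Falls numbered 328 with quantile normalization and 359 with voom on recovered reads. Leaving out 1 library gave 108 to 460 rises and 11 to 209 falls. Other pseudocounts, filters, scalings and models, and a fit of only the 4 libraries with RANKL, gave 382 to 567 rises and 165 to 293 falls. The deviations of same-numbered libraries correlated by 0.12, −0.25 and −0.08 between groups. With 1 replicate difference per group, these values cannot show whether the libraries were paired. A replicate block gave 492 rises and 185 falls and held 653 of the 751 calls. Of the named genes, 205 were called, and 48 of these were called under every alternative. With every gene above 0 tested, 99 of them lost the call. Of 21 named genes that were not called, only *Rela* changed sign, to −0.0029 with the median of ratios, and its log2 fold change ranged from −0.058 to 0.163 with 1 library left out. Counts of list members moved by over 1.5 times in 448 of 2420 comparisons with an alternative. With 2 libraries a group, and low FPKM values resting on few reads, small changes of low genes were not detectable here. Causes of these shifts were not tested.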

Other observations

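Genes called in the same direction sometimes lay side by side. Runs of at least 3 such genes, each within 100000 bases of the next, numbered 11 among the rises and 1 among the falls (mm10 coordinates). The genes in them were chosen after their values were seen, and no test of clustering was run. On chromosome 11 (chr11:114890041-115001880) 4 genes of the CD300 family of myeloid immunoglobulin-like receptors rose. *Cd300c2*, an activating receptor, had 39.0 and 33.9 FPKM with RANKL + LEA, against 17.6 and 15.7 FPKM with RANKL and 30.7 and 40.4 FPKM without RANKL (log2 fold change 1.12, SE 0.15, limma adjusted p = 0.00692), and *Cd300a*, an inhibitory receptor of the family, had 49.6 and 43.6 FPKM with RANKL + LEA, against 28.5 and 25.9 FPKM with RANKL and 24.2 and 27.5 FPKM without RANKL (log2 fold change 0.77, SE 0.12, limma adjusted p = 0.0109). For *Cd300a* the cells with RANKL + LEA were above both other groups. Elsewhere on that chromosome the chemokines *Ccl2*, *Ccl7* and *Ccl12* (chr11:82035577-82103399) and *Ccl6*, *Ccl3* and *Ccl4* with *Wfdc17* (chr11:83587886-83706269) formed a run each. *Ccl2*, the main attractant of monocytes, had 14.9 and 9.47 FPKM with RANKL + LEA, against 4.84 and 4.50 FPKM with RANKL and 33.7 and 40.0 FPKM without RANKL (log2 fold change 1.33, SE 0.20, limma adjusted p = 0.0107). *Cd300c2* and *Cd300a* lost the call without RANKL + LEA replicate 1 or either RANKL library (adjusted p up to 0.0944) and *Ccl2* without either RANKL library (p up to 0.104).

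Other runs joined relatives that may share reads. Of 7 genes tested between the outer called Raet1 genes (chr10:22158609-22374139), 5 rose, and these encode stress ligands of the receptor NKG2D. *Raet1d* had 5.57 and 5.21 FPKM with RANKL + LEA, against 2.77 and 3.26 FPKM with RANKL and 4.45 and 5.20 FPKM without RANKL (log2 fold change 0.82, SE 0.14, limma adjusted p = 0.0167). *Naip5*, *Naip6* and *Naip7* (chr13:100211740-100317688), inflammasome sensors of bacterial flagellin and related proteins, rose by log2 fold changes between 0.62 and 0.64. Such near-identical copies are uncertain as separate calls. The run of falls held *Dnmt3a*, *Efr3b* and *Adcy3* (chr12:3891744-4213524). *Dnmt3a*, a DNA methyltransferase, had 30.6 and 34.4 FPKM with RANKL + LEA, against 53.3 and 51.6 FPKM with RANKL and 15.5 and 15.0 FPKM without RANKL (log2 fold change −0.69, SE 0.10, limma adjusted p = 0.0101), and *Adcy3*, an adenylate cyclase, had 16.4 and 19.7 FPKM with RANKL + LEA, against 34.4 and 33.3 FPKM with RANKL and 2.26 and 2.10 FPKM without RANKL (log2 fold change −0.91, SE 0.12, limma adjusted p = 0.00696). For both, the treated libraries lay between RANKL alone and no RANKL. *Naip5*, *Naip6* and *Naip7* lost the call without any 1 library (adjusted p up to 0.169), *Raet1d* without any 1 of the 4 with RANKL (p up to 0.0979), *Dnmt3a* without RANKL + LEA replicate 1 or either RANKL library (p up to 0.0715) and *Adcy3* without either RANKL library (p up to 0.0697). *Naip5* and *Naip7* further lost the call with 6 of 10 other settings (adjusted p up to 0.0932) and *Naip6* with 5 of 10 other settings (p up to 0.0685).

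Genes with exons under 200 bases, mostly small RNA genes, made up 348 of those tested, and 15 of them were called higher and 11 lower. Many rest on few reads or lie in longer genes: of the 309 genes with under 50 reads over the 4 libraries with RANKL, 16 were called higher and 8 lower. Chromosome 1 had 6.33% of its genes called higher and chromosome 16 had 1.34%, against 4.54% of all genes.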
